A study of Mus musculus with 9 samples.

Results

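Livers given ischaemic postconditioning (IPO) were compared with livers given ischaemia-reperfusion alone (IR), using 3 RNA-seq libraries of each, 6 of the 9 libraries of the series. In postconditioning the inflow is stopped and released again for short spells as reperfusion begins, and the comparison asks how the liver transcriptome differed when that step was added. All 9 libraries came from liver of C57BL/6 mice aged 8 weeks, and the 3 groups of 3 libraries were IPO, IR and sham surgery. The members of the comparison were all genes averaging 1 FPKM or more over the 9 libraries (fragments per kilobase of transcript, scaled to the mapped total), which held for 9649 of 11229 genes, and 1580 genes lay under that level. The labels name the 3 treatments and give neither the length of ischaemia, the number or length of the brief interruptions, nor the interval between surgery and sampling. Nothing in them says that the 3 libraries of a group came from separate animals, so p-values speak to variation among these libraries alone, possibly of technical origin.

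As background, restoring flow to an ischaemic liver brings oxidants, calcium and released cell contents into contact with hepatocytes and sinusoidal cells. Stress-activated kinases then switch on immediate early genes such as those of the AP-1 family within minutes, while Kupffer cells and other cells release interleukin 1, tumour necrosis factor and interleukin 6. Interleukin 6 acts on hepatocytes through STAT3 and drives the acute phase response, in which the liver secretes serum amyloid A, fibrinogen and metal-binding proteins. Hepatocytes also burn fatty acids under the control of PPARA, make glucose and urea, and follow a daily rhythm set by the circadian clock.

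The libraries were checked before the results. Summed FPKM were 375460, 379972 and 387000 in the IPO libraries, against 363461, 363429 and 379117 in the IR libraries, and the number of reads behind them is unknown, and counting error cannot be stated. The 7 hepatocyte markers, among them albumin and transferrin, summed to 23180 to 25150 FPKM in IPO, against 22970 to 31020 FPKM in IR and 17760 to 25130 FPKM in sham, so hepatocyte transcripts were abundant in every library. IR replicate 3 stood apart in markers of other cell types. Its mean over 11 Kupffer cell markers was 5.38 on the log2(FPKM + 0.5) scale, against 4.12 and 3.50 in the other IR libraries and 4.02, 3.88 and 3.70 in the IPO libraries. Several results that rest on this library are given with and without it. The sample descriptions carry 1 code number shared by all IPO libraries and another shared by all IR libraries and 1 sham library, so whatever that number marks cannot be told apart from the difference between IPO and IR, and a term for it could not be fitted in this comparison. These are bulk samples, in which fewer cells of a type and less RNA per cell cannot be told apart.

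Of the 9649 genes, 2133 (22.1%) passed an adjusted p under 0.05 in limma's moderated test of IPO against IR, 1154 of them higher in IPO (12%) and 979 lower (10.1%). Differences are given as log2 differences, IPO minus IR, of log2(FPKM + 0.5), a scale that understates the change of genes near 0. The median over all tested genes was 0.02, and the median size of the difference among the 2133 was 0.78. A fold of at least 2 was reached by 626 of them (6.49%), 355 higher and 271 lower in IPO. The 3 IPO and 3 IR libraries did not overlap for 4116 genes (42.7%), among them 2123 of the 2133 that passed. Where a called gene is said below to have separate IPO and IR libraries, this describes its values and adds little to its call. With 1 library left out the count ran from 1085 to 2231, and it was 1085 on leaving out IPO replicate 1, 1202 on leaving out IPO replicate 2 and 1106 on leaving out IPO replicate 3, and 645 genes were called lower in IPO without IR replicate 2.

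The sham libraries give each gene another level. Against sham, 22 genes passed in IPO (0.228%, 12 higher and 10 lower) and 1109 passed in IR (11.5%, 372 higher and 737 lower), counts that share the sham libraries and therefore are not independent of each other. The first count was 1 on leaving out IPO replicate 3 or sham replicate 2, 6 on leaving out IPO replicate 2 or sham replicate 1, 8 on leaving out IPO replicate 1 and 11 on leaving out IR replicate 2 or sham replicate 3. The second was 310 on leaving out sham replicate 2, nearly as low without sham replicate 1, 620 on leaving out IPO replicate 3, 653 on leaving out IR replicate 1, 678 on leaving out IR replicate 2 and 713 on leaving out IPO replicate 2. Of the 2133 genes that passed between IPO and IR, 1690 (79.2%) stood nearer to the IPO mean than to the IR mean in sham replicate 1, 1532 (71.8%) in sham replicate 2 and 1290 (60.5%) in sham replicate 3. Sham replicate 3 was the least often on the IPO side. Levels in sham are given beside some of the named genes. Rises and falls below are those of IPO against IR, not against sham.

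The largest rises of IPO over IR were in secreted and inducible liver products. Saa2 (ENSMUSG00000057465.5, chromosome 7, 46751790 to 46754313), an acute phase apolipoprotein, stood at 938, 512 and 519.9 FPKM in the IPO libraries, against 3.44, 2.24 and 68.3 FPKM in the IR libraries. The IR libraries did not reach the IPO libraries, although IR replicate 3 was far above the other IR libraries. The log2 difference was 6.12 (SE 1.03, limma adjusted p = 0.00463). Lcn2 (ENSMUSG00000026822.14, chromosome 2, 32384633 to 32388252), the siderophore-binding lipocalin 2, had 334, 182 and 174 FPKM in the IPO libraries, against 2.26, 1.67 and 15 FPKM in the IR libraries and 357, 264 and 85.8 FPKM in the sham libraries. For Lcn2 the log2 difference was 5.60 (SE 0.74, limma adjusted p = 0.00161). Cyp2b10, on chromosome 7 at 25897620 to 25926624 (ENSMUSG00000030483.14), is a P450 of drug metabolism that is induced through the nuclear receptor CAR. It averaged 132 ± 106 FPKM in IPO and 2.81 ± 1.11 FPKM in IR (SD, n = 3 each), with a log2 difference of 5.07 (SE 0.56, limma adjusted p = 0.000834). Its 3 IPO libraries ranged over 252, 49.5 and 94.6 FPKM, and each lay above every IR library.

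The other 9 of the 12 largest rises covered several functions. Saa1, another acute phase serum amyloid A gene, rose by 4.87 on the log2 scale, and the metalloreductase gene Steap4 by 4.31. Il1r1 (ENSMUSG00000026072.12, chromosome 1, 40225080 to 40317257), the signalling receptor of interleukin 1, had 119.5, 124 and 103 FPKM in the IPO libraries, against 10.4, 12 and 12.9 FPKM in the IR libraries. Each group was tight and the log2 difference was 3.24 (SE 0.31, limma adjusted p = 0.000426). Tifa, an adaptor that carries signals to NF-kB, rose by 3.87, and the claudin gene Cldn14, which encodes a tight junction protein, by 3.52. B3galt1, a galactosyltransferase gene, stood at 39.4, 24.4 and 29.4 FPKM in the IPO libraries, against 0.267, 0.941 and 0.802 FPKM in the IR libraries, and no IR library reached 1 FPKM. Syt12 (synaptotagmin 12) rose by 3.92, Serpina7, which encodes thyroxine-binding globulin, by 3.57, and the magnesium transporter gene Slc41a2 by 3.36. All 12 kept an adjusted p under 0.05 when any 1 library was left out.

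The largest falls were led by immediate early genes. Fosb (ENSMUSG00000003545.3, chromosome 7, 19302696 to 19310051), an AP-1 subunit, had 0.0864, 0.723 and 0.702 FPKM in the IPO libraries, against 58.3, 45.2 and 58.7 FPKM in the IR libraries and 0.0442, 0.0389 and 1.21 FPKM in the sham libraries. No IPO library reached 1 FPKM while every IR library lay far above that, and the log2 difference was -5.83 (SE 0.44, limma adjusted p = 0.000216). Atf3, a stress-induced transcription factor, fell to 1.60, 6.70 and 4.39 FPKM in the IPO libraries, against 116, 123 and 164 FPKM in the IR libraries, a log2 difference of -4.99 (SE 0.63, limma adjusted p = 0.00127). Cyr61 (ENSMUSG00000028195.4, chromosome 3, 145646976 to 145649981), which encodes a matricellular protein, had 0.979, 4.58 and 3.94 FPKM in the IPO libraries, against 41.5, 72.9 and 78.5 FPKM in the IR libraries, a log2 difference of -4.28 (SE 0.47, limma adjusted p = 0.000775). Fos was less even, with 1.06, 5.63 and 4.97 FPKM in the IPO libraries, against 11.9, 245 and 291 FPKM in the IR libraries. IR replicate 1 was low for Fos but stayed above the IPO libraries, and the log2 difference of -4.68 (SE 1.09, limma adjusted p = 0.0163) lost its call in 2 cases, with an adjusted p of 0.0624 on leaving out IPO replicate 1 and 0.0519 on leaving out IR replicate 2.

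Outside the immediate early group, 4 genes were among the 12 largest falls. Kcnk5, a potassium channel gene, had 1.53, 1.21 and 0.940 FPKM in the IPO libraries, against 34.6, 9.81 and 18.3 FPKM in the IR libraries, a log2 difference of -3.47 (SE 0.68, limma adjusted p = 0.00792). Osgin1, an oxidative stress-induced growth inhibitor, stood at 13.8, 5.78 and 7.26 FPKM in the IPO libraries, against 83.4, 103 and 106 FPKM in the IR libraries. The IPO libraries lay well under the IR libraries, with a log2 difference of -3.46 (SE 0.63, limma adjusted p = 0.00613). Lipg, which encodes endothelial lipase, fell to 0.673, 0.623 and 0.490 FPKM in the IPO libraries, against 4.29, 13.1 and 10.6 FPKM in the IR libraries, a log2 difference of -3.04 (SE 0.34, limma adjusted p = 0.000882). Eno1b is uncertain, since its sequence is nearly identical to that of Eno1 and reads may be split between them. It was listed at 0, 8.39 and 0 FPKM in the IPO libraries, against 14.8, 8.44 and 10.7 FPKM in the IR libraries, and its adjusted p of 0.0374 became 0.124 on leaving out IPO replicate 1, 0.124 on leaving out IPO replicate 3, 0.0990 on leaving out IR replicate 1, 0.0674 on leaving out IR replicate 2, 0.0631 on leaving out IR replicate 3, 0.0526 on leaving out sham replicate 1 and 0.0536 on leaving out sham replicate 2. The plot of the largest changes shows each of the 24 genes in every library.

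**Figure D1:**
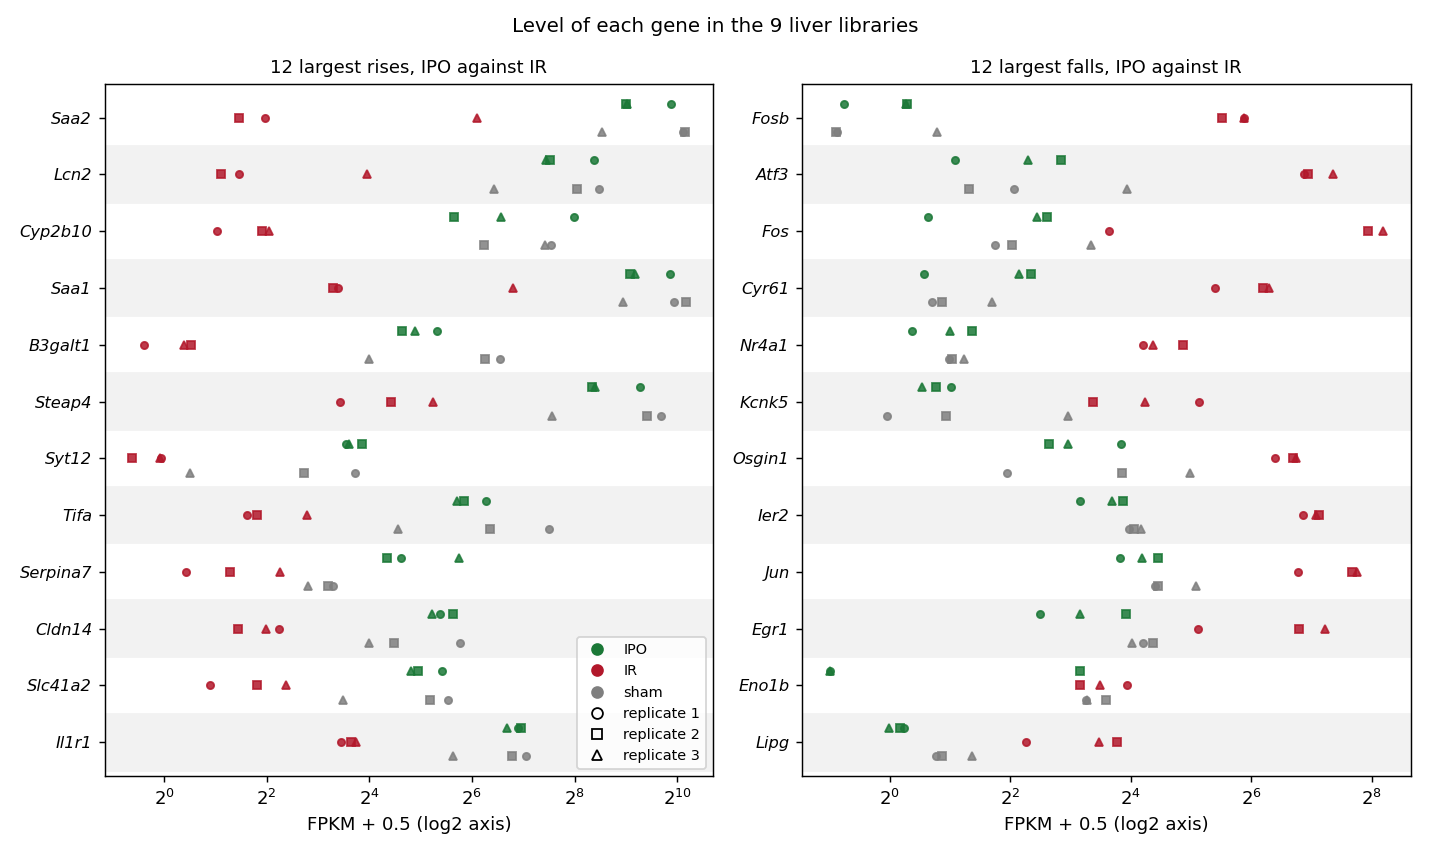
FPKM + 0.5 on a log2 axis for the 12 largest rises (left panel) and 12 largest falls (right panel) of IPO against IR, with 1 point per library, coloured by group (IPO, IR, sham) and shaped by replicate. In every row the IPO points and the IR points do not overlap, as the rule for naming these genes required, and the sham points lie on the IPO side for most genes.

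Immediate early genes were lower in IPO as a group. Of 24 tested members, 19 fell and 0 rose, against 10.1% and 12% of all genes, and their median log2 difference was -2.02, against 0.02 over all genes. The mean over the members was 2.80, 3.53 and 3.23 in the IPO libraries, against 5.15, 5.39 and 5.72 in the IR libraries and 3.29, 3.12 and 3.44 in the sham libraries on the log2(FPKM + 0.5) scale. The sham libraries lay within the range of the IPO libraries, and every IR library lay above both. Ier2 (ENSMUSG00000053560.4, chromosome 8, 84661331 to 84662852), a nuclear growth response protein gene, had 8.41, 14.1 and 12.5 FPKM in the IPO libraries, against 116, 139.8 and 135 FPKM in the IR libraries, with a log2 difference of -3.45 (SE 0.18, limma adjusted p = 5.99e-05). Jun (ENSMUSG00000052684.4, chromosome 4, 95049034 to 95052222), a partner of the Fos proteins in AP-1, had 13.7, 21.5 and 17.6 FPKM in the IPO libraries, against 109.6, 205 and 216 FPKM in the IR libraries, a log2 difference of -3.25 (SE 0.29, limma adjusted p = 0.000318). Nr4a1, an orphan nuclear receptor gene, had 0.791, 2.08 and 1.50 FPKM in the IPO libraries, against 18, 28.6 and 20.2 FPKM in the IR libraries, a log2 difference of -3.57 (SE 0.26, limma adjusted p = 0.000216). In all of these genes the lowest IR library was several times the highest IPO library. The single member with a positive difference, Ier3, chosen after its values were seen, was not called (log2 difference 0.36, adjusted p = 0.562).

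Btg2 and Dusp1 belong to the same group and restrain growth signals. Btg2 encodes an antiproliferative cofactor of mRNA deadenylation, and Dusp1 a phosphatase that inactivates MAP kinases. Their promoters are shown because the genes moved together and both windows hold the full cAMP response element, the binding motif of CREB. Each window runs from 250 bases before to 50 bases after the start of transcription, from RefSeq on GRCm38.p6, minus strand, 5′ to 3′, with the element TGACGTCA in capitals. The windows are chr17:26508423-26508722 for Dusp1 and chr1:134079106-134079405 for Btg2.
Dusp1: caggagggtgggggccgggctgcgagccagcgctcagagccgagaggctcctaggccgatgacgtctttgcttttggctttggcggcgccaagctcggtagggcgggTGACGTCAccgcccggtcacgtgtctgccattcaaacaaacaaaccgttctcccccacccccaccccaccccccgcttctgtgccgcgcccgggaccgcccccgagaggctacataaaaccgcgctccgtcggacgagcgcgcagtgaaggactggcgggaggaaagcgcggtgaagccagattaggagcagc
Btg2: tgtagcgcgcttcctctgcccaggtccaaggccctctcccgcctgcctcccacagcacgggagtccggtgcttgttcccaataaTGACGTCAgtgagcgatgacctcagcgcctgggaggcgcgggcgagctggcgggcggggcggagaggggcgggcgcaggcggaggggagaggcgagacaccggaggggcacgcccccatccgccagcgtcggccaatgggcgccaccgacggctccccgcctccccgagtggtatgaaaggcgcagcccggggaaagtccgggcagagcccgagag
The element, which reads the same on both strands, was found in 3 of the 20 immediate early genes with a window (15%), in 3.32% of the 7706 tested genes with a window and in 1.79% of all 32851 windows. A match is a description of the letters and no evidence of binding.

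Both genes fell together in IPO. Dusp1 (ENSMUSG00000024190.6, chromosome 17, 26505590 to 26508519) had 22.6, 25.9 and 20.1 FPKM in the IPO libraries, against 65.2, 138 and 171 FPKM in the IR libraries and 21.4, 22.7 and 20.7 FPKM in the sham libraries, and its log2 difference was -2.32 (SE 0.30, limma adjusted p = 0.00134). IR replicate 1 was the lowest IR library and still lay above every IPO library. Btg2 (ENSMUSG00000020423.6, chromosome 1, 134075170 to 134079120) had 33.1, 36.9 and 32.4 FPKM in the IPO libraries, against 129, 175 and 174 FPKM in the IR libraries and 72.1, 39.2 and 44 FPKM in the sham libraries. For Btg2 the log2 difference was -2.20 (SE 0.22, limma adjusted p = 0.000578). All sham libraries lay between the groups for Btg2, and sham replicate 1 was the highest of them.

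Acute phase proteins were higher in IPO. Of 24 tested members, 18 rose and 0 fell, against 12% and 10.1% of all genes, with a median log2 difference of 1.49. The mean over the members was 9.20, 8.83 and 8.89 in the IPO libraries, against 6.69, 6.66 and 7.49 in the IR libraries and 9.37, 9.41 and 8.61 in the sham libraries. IR replicate 3 was the highest IR library and still lay under every IPO and sham library. Serpina3n (ENSMUSG00000021091.8, chromosome 12, 104406729 to 104414329), a secreted serine protease inhibitor, had 1564, 1409 and 1210 FPKM in the IPO libraries, against 173, 170.5 and 214 FPKM in the IR libraries, a log2 difference of 2.90 (SE 0.25, limma adjusted p = 0.000305). Its neighbour Serpina3m had 1132, 925 and 919.9 FPKM in the IPO libraries, against 149, 219.9 and 160.2 FPKM in the IR libraries, a log2 difference of 2.50 (SE 0.19, limma adjusted p = 0.000216). The Serpina3 genes are a cluster of close copies, and Saa1 and Saa2 are near-identical, so reads may be split among them.

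Fibrinogen, the precursor of the fibrin clot, has 3 chains encoded by Fga, Fgb and Fgg, and all 3 genes rose by a similar amount. Fgb (ENSMUSG00000033831.5, chromosome 3, 83040141 to 83049863) had 2360, 1952 and 2082 FPKM in the IPO libraries, against 774, 795 and 668 FPKM in the IR libraries, with a log2 difference of 1.51 (SE 0.13, limma adjusted p = 0.000318). Fgg (ENSMUSG00000033860.13, chromosome 3, 83007724 to 83015049) had 3541, 2936 and 3099 FPKM in the IPO libraries, against 1037, 1219 and 895 FPKM in the IR libraries, a log2 difference of 1.61 (SE 0.17, limma adjusted p = 0.000620). For Fga, chosen after its values were seen, the log2 difference was 1.57 (SE 0.17, limma adjusted p = 0.000834). In all 3 genes the lowest IPO library exceeded the highest IR library, and the sham libraries lay nearer to IPO than to IR, for example 1832, 1834 and 1494 FPKM for Fgb.

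**Figure D2:**
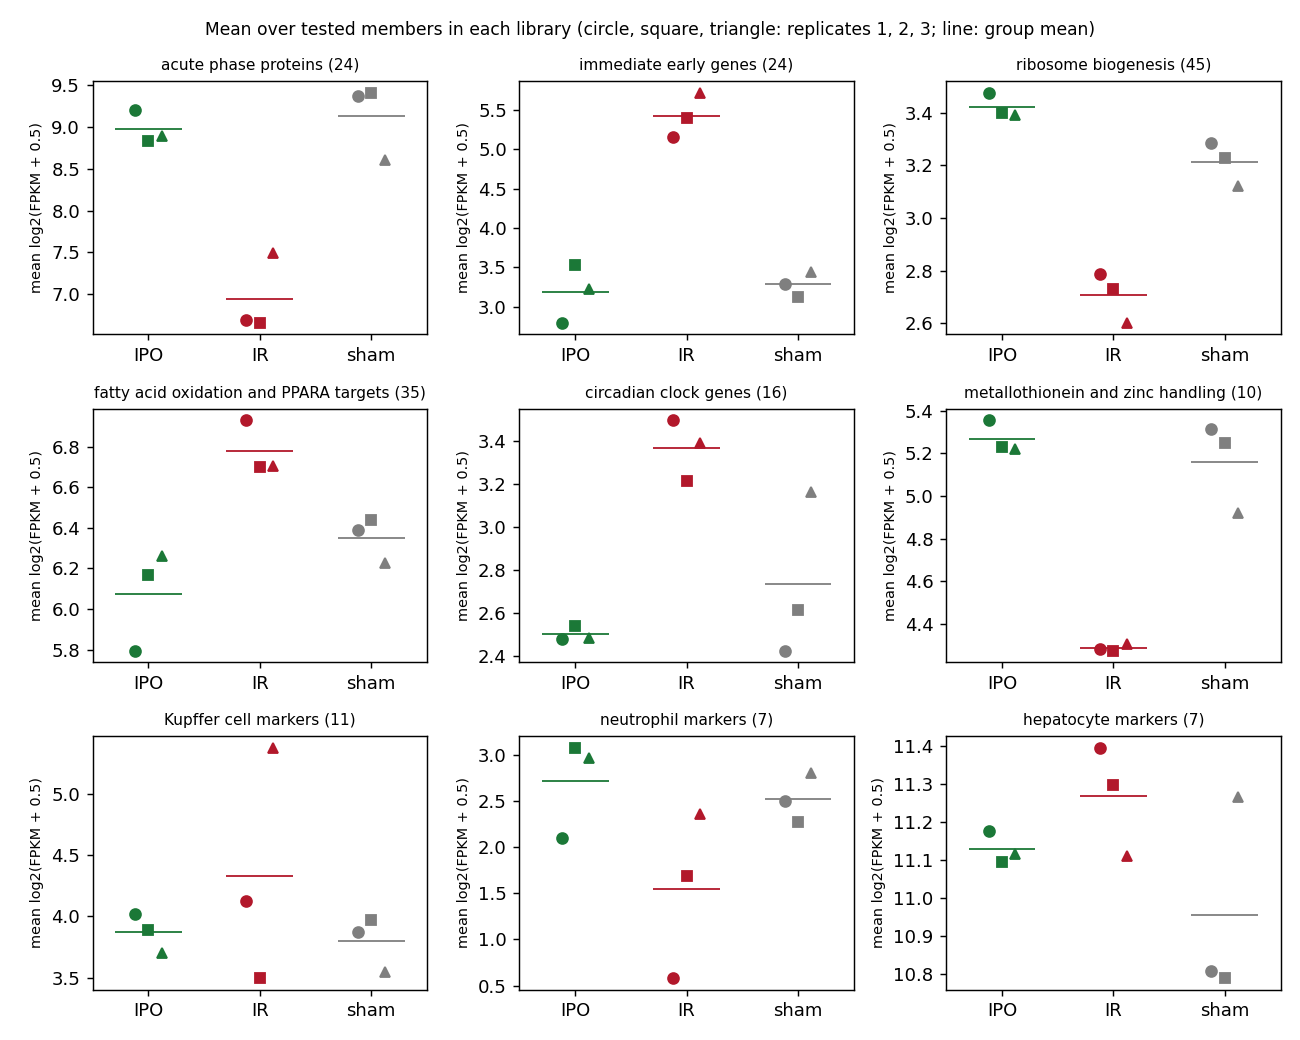
Mean log2(FPKM + 0.5) over the tested members of 9 gene lists (number of members in brackets), with 1 point per library and a line at each group mean; the vertical axes do not start at 0. Acute phase, ribosome biogenesis and metallothionein lists lie higher in IPO than in IR, immediate early, fatty acid oxidation and clock lists lie lower in all 3 IPO libraries, and the Kupffer cell list stands apart in IR replicate 3.

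Components of the interleukin 6 pathway changed in both directions. Of 18 tested genes, 6 rose and 3 fell, with a median log2 difference of 0.51; the first count was 3 on leaving out any IPO library or IR replicate 2, and the second 1 on leaving out IPO replicate 1, IPO replicate 3 or IR replicate 1. Stat3 (ENSMUSG00000004040.16, chromosome 11, 100885098 to 100939540), the transcription factor of the pathway, had 31.8, 27.5 and 25.7 FPKM in the IPO libraries, against 11.1, 10.3 and 9.53 FPKM in the IR libraries and 31.4, 27.2 and 23.2 FPKM in the sham libraries. For Stat3 the log2 difference was 1.41 (SE 0.14, limma adjusted p = 0.000597). Il6st, which encodes the shared receptor subunit gp130, had 25.7, 19.5 and 27.3 FPKM in the IPO libraries, against 9.28, 8.71 and 11.8 FPKM in the IR libraries, a log2 difference of 1.24 (SE 0.22, limma adjusted p = 0.00552). Ptpn2, a phosphatase that restrains JAK and STAT signalling, had 17.4, 18.5 and 18.3 FPKM in the IPO libraries, against 4.63, 4.31 and 5.28 FPKM in the IR libraries, a log2 difference of 1.83 (SE 0.15, limma adjusted p = 0.000305). Tyk2, a JAK family kinase gene, went the other way, with 2.56, 2.79 and 2.35 FPKM in the IPO libraries, against 4.60, 4.82 and 4.95 FPKM in the IR libraries, a log2 difference of -0.79 (SE 0.12, limma adjusted p = 0.00334). For each of these 4 genes the IPO and IR libraries were fully separate.

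The interleukin 1 and NF-kB list showed the same mixture. Of 37 tested members, 9 rose and 3 fell, the median was 0.33, and the number that rose was 14 on leaving out IR replicate 3. Beside Il1r1 and Tifa, the tumour necrosis factor receptor gene Tnfrsf1a rose, with 92.3, 82.3 and 84.2 FPKM in the IPO libraries, against 28.7, 20.9 and 30.5 FPKM in the IR libraries, a log2 difference of 1.69 (SE 0.23, limma adjusted p = 0.00213). Nfkbia (ENSMUSG00000021025.7, chromosome 12, 55489411 to 55492647) encodes the inhibitor that holds NF-kB in the cytoplasm and is itself a rapid NF-kB target. It fell to 39, 43.6 and 36 FPKM in the IPO libraries, against 111, 99.5 and 154 FPKM in the IR libraries, a log2 difference of -1.58 (SE 0.18, limma adjusted p = 0.000944). Il1r1 and Tnfrsf1a were thus higher and Nfkbia lower in every IPO library than in any IR library.

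Among 18 chemokine and adhesion genes 1 rose (5.56%, under the 12% of all genes) and 0 fell, and without IR replicate 3 the number that rose was 3. The one that passed was Cxcl1, a neutrophil attractant, with 127, 62.5 and 74.3 FPKM in the IPO libraries, against 5.27, 6.88 and 21.8 FPKM in the IR libraries and 165, 145 and 88.1 FPKM in the sham libraries. For Cxcl1 the log2 difference was 3.10 (SE 0.48, limma adjusted p = 0.00331). The highest IR library was replicate 3, and it stayed under every IPO library. Of 33 interferon-stimulated genes 5 rose (15.2%, against 12% of all genes), and this count was 0 on leaving out IPO replicate 1, 1 on leaving out IPO replicate 2, IPO replicate 3, IR replicate 1 or 2, 2 on leaving out sham replicate 1 or 2 and 17 on leaving out IR replicate 3. IR replicate 3, which also held the most Kupffer cell transcripts, had the highest IR level of the 4 leading members Parp14, Stat2, Samd9l and Parp9, and its part in that count was not tested beyond leaving it out.

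Of 18 tested antigen presentation genes 5 fell and 0 rose, with a median of -0.56. These calls rested on single libraries, since the number that fell was 0 on leaving out any IPO library or IR replicate 3, 1 on leaving out sham replicate 1, 2 on leaving out IR replicate 1 or sham replicate 2 and 8 on leaving out IR replicate 2. Of 28 complement genes 2 rose and 2 fell (7.14% each), and of 28 coagulation factors other than fibrinogen 2 rose (7.14%) and 0 fell. These shares were under the 12% and 10.1% of all genes. Serpina10, which encodes the inhibitor of activated factor X, led the coagulation list by its p, with 202, 155 and 165 FPKM in the IPO libraries, against 30.2, 34.4 and 46.4 FPKM in the IR libraries, a log2 difference of 2.23 (SE 0.28, limma adjusted p = 0.00122). In the coagulation list the median was -0.14 while the mean over members was slightly higher in IPO. The complement counts were 0 on leaving out IPO replicate 1 and 1 on leaving out IPO replicate 2 for the rises and 0 on leaving out any IPO library, any IR library or sham replicate 1 and 1 on leaving out sham replicate 2 for the falls, and the coagulation count was 1 on leaving out any IPO library, IR replicate 1 or sham replicate 1.

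The metallothionein genes Mt1 and Mt2 rose, as did the zinc carrier genes Slc39a14 and Slc30a7, while 1 zinc carrier gene fell. Metallothioneins are small cysteine-rich proteins that bind zinc and copper, and their genes are switched on by the zinc sensor MTF1 at metal response elements and by inflammatory and glucocorticoid signals. The promoters of Mt1 and Mt2 are shown with the core of that element in capitals, TGCACNC or TGCGCNC on either strand. Both windows are on the plus strand of GRCm38.p6 from RefSeq, chr8:94178839-94179138 for Mt1 and chr8:94172368-94172667 for Mt2, and cover 250 bases before to 50 bases after the start.
Mt1: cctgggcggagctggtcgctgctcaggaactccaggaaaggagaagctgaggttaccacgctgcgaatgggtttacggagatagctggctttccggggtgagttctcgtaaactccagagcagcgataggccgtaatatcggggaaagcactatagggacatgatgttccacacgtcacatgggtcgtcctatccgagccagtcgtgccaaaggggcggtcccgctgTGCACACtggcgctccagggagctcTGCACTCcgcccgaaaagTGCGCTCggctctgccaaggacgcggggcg
Mt2: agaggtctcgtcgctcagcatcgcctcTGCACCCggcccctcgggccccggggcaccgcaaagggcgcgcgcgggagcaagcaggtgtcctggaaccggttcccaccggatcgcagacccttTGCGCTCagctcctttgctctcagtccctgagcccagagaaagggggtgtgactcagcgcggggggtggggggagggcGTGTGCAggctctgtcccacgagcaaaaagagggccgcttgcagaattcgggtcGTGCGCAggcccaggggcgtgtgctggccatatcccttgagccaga
The Mt1 window held 3 such cores and the Mt2 window 4. The Mt1 cores began at -23, 2 and 20 bases from the annotated RefSeq start. Those of Mt2 began at -223, -128, -50 and 4 bases, so both windows held cores after the annotated start. Where transcription begins in these livers was not measured, so the positions hold for the annotation only. The core is short, and 25.7% of all 32851 windows and 36% of the windows of tested genes held at least 1. In this list 4 of the 8 genes with a window did (50%).

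Mt1 (ENSMUSG00000031765.7, chromosome 8, 94179089 to 94180325) had 2470, 2630 and 2616 FPKM in the IPO libraries, against 605, 396 and 461 FPKM in the IR libraries and 2341, 2531 and 1419 FPKM in the sham libraries. Mt2 (ENSMUSG00000031762.6, chromosome 8, 94172618 to 94173567) had 2422, 2453 and 2384 FPKM in the IPO libraries, against 501, 320.4 and 391 FPKM in the IR libraries and 2129, 2356 and 1315 FPKM in the sham libraries. Their log2 differences were 2.42 (SE 0.23, limma adjusted p = 0.000407) for Mt1 and 2.60 (SE 0.23, limma adjusted p = 0.000318) for Mt2. The IPO libraries agreed closely. All sham libraries lay between the groups for Mt2, as did sham replicates 1 and 3 for Mt1. Sham replicate 3 was the lowest sham library for both genes. Slc39a14 (ENSMUSG00000022094.15, chromosome 14, 70303469 to 70351425), a zinc and iron importer of the hepatocyte, rose to 134, 122 and 118 FPKM in the IPO libraries, against 22.7, 21.8 and 20.6 FPKM in the IR libraries, a log2 difference of 2.50 (SE 0.17, limma adjusted p = 0.000216). Slc30a7, a zinc carrier of the Golgi, had a log2 difference of 0.95 (SE 0.19, limma adjusted p = 0.00943). Of 10 tested members 4 rose and 1 fell, with a median of 0.72. The gene that fell was the zinc importer Slc39a4 (-0.62, adjusted p = 0.0170), chosen after its values were seen, and that count was 0 on leaving out IPO replicate 1 or 2.

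Iron and haem genes changed in both directions. Of 33 tested, 7 rose and 7 fell, and the number that fell was 4 on leaving out any IPO library. The median was -0.24, while the mean over members was slightly higher in IPO. Hamp (ENSMUSG00000050440.8, chromosome 7, 30942368 to 30944032), which encodes the iron-regulatory hormone hepcidin, had 1798, 1312 and 1405 FPKM in the IPO libraries, against 737, 569 and 757 FPKM in the IR libraries, a log2 difference of 1.13 (SE 0.19, limma adjusted p = 0.00465). Hfe2, which encodes hemojuvelin, a BMP coreceptor that supports hepcidin expression, had 8.68, 13.6 and 18.8 FPKM in the IPO libraries, against 39.3, 33.1 and 41.1 FPKM in the IR libraries, a log2 difference of -1.49 (SE 0.24, limma adjusted p = 0.00349). Hepcidin transcripts were thus higher and hemojuvelin transcripts lower, each without overlap. Steap4, described above among the largest rises, had 622, 324 and 336 FPKM in the IPO libraries, against 10.3, 20.9 and 37.3 FPKM in the IR libraries and 819, 684 and 187 FPKM in the sham libraries.

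Fatty acid oxidation genes were lower in IPO. Of 35 tested members of the PPARA and beta-oxidation list, 23 fell and 0 rose, 35 had a negative difference, and the median was -0.55. The number that fell was 10 on leaving out IPO replicate 1 and 15 on leaving out IPO replicate 2, IR replicate 1 or 2, and 15 with quantile normalization. The mean over the members was 5.80, 6.17 and 6.26 in the IPO libraries, against 6.93, 6.70 and 6.71 in the IR libraries and 6.39, 6.44 and 6.23 in the sham libraries. IPO replicate 1 was the lowest library of all 9, and the IPO libraries did not overlap with the IR libraries. Ppara (ENSMUSG00000022383.13, chromosome 15, 85734983 to 85802819), the nuclear receptor gene itself, had 15.6, 15.6 and 14.2 FPKM in the IPO libraries, against 31.6, 43.9 and 28.1 FPKM in the IR libraries and 18.1, 16.5 and 22.8 FPKM in the sham libraries. For Ppara the log2 difference was -1.14 (SE 0.18, limma adjusted p = 0.00364).

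Crat (carnitine acetyltransferase) and Plin5, which encodes a lipid droplet coat protein that links droplets to mitochondria, were the other leading members. Crat had 5.02, 6.09 and 12.3 FPKM in the IPO libraries, against 32.2, 22.7 and 23.1 FPKM in the IR libraries, a log2 difference of -1.76 (SE 0.29, limma adjusted p = 0.00407), and IPO replicate 3 was the highest IPO library. Plin5 had 36.7, 44.7 and 59.5 FPKM in the IPO libraries, against 116, 93.3 and 85.5 FPKM in the IR libraries, a log2 difference of -1.07 (SE 0.18, limma adjusted p = 0.00479). All 4 leading members kept an adjusted p under 0.05 when any 1 library was left out. The plot of ribosome and fatty acid oxidation members shows that the differences of this list ran from -2.94 to -0.02.

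**Figure D3:**
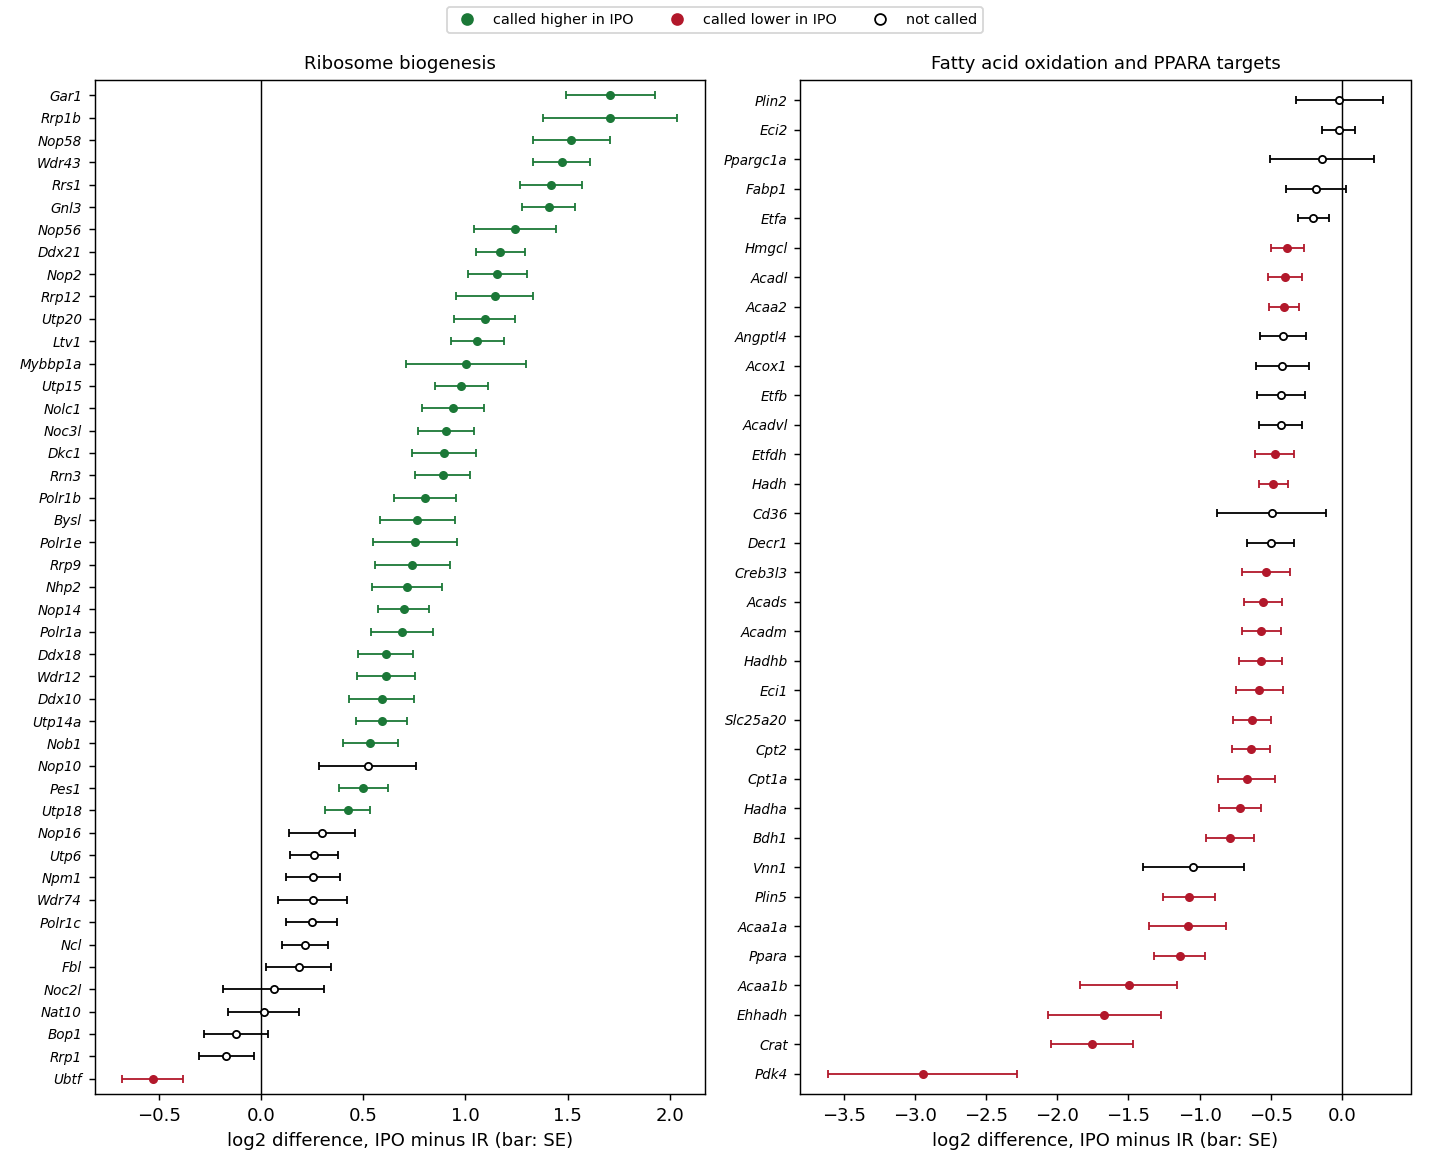
Log2 difference, IPO minus IR, of each tested member of the ribosome biogenesis list (left panel) and of the fatty acid oxidation and PPARA list (right panel, 1 member not shown), with bars for the standard error from the limma fit; filled points passed an adjusted p under 0.05 and open points did not. Most ribosome biogenesis members lie to the right of 0, and all fatty acid oxidation members shown lie to the left of it.

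In the list of omega-oxidation P450s and acyl-CoA thioesterases, which hydrolyse acyl-CoA and are induced by PPARA, 12 of 19 tested members fell and 0 rose, with a median of -0.69. Those that fell numbered 5 on leaving out IPO replicate 1 and 6 on leaving out IR replicate 1 or 2. Acot3 (ENSMUSG00000021228.14, chromosome 12, 84052144 to 84059565), a peroxisomal thioesterase, had 2.62, 5.15 and 5.23 FPKM in the IPO libraries, against 23.4, 26 and 17.3 FPKM in the IR libraries, a log2 difference of -2.27 (SE 0.25, limma adjusted p = 0.000764). Acot4 had 10.4, 14 and 14.1 FPKM in the IPO libraries, against 30.6, 31.6 and 27.5 FPKM in the IR libraries, a log2 difference of -1.20 (SE 0.14, limma adjusted p = 0.00101). Acot8, another peroxisomal thioesterase, had 6.05, 7.79 and 8.63 FPKM in the IPO libraries, against 17.4, 12.6 and 16.4 FPKM in the IR libraries, an adjusted p of 0.00860 in limma. Acot1 to Acot6 and the Cyp4a genes are clusters of close copies, so values of single members are uncertain. Of 15 peroxisome biogenesis (Pex) genes, 6 fell and 0 rose, with a median of -0.43, but the number that fell was 0 on leaving out IPO replicate 1 or 2, 1 on leaving out IPO replicate 3, 2 on leaving out IR replicate 2 and 3 on leaving out IR replicate 1 or 3.

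Of 38 tested genes of glucose production and amino acid breakdown, 14 fell and 1 rose, with a median of -0.43. The number that fell was 8 on leaving out IPO replicate 2, IPO replicate 3 or IR replicate 2 and 9 on leaving out IPO replicate 1 or IR replicate 1, and the number that rose 0 on leaving out any IPO library, IR replicate 1 or 3. Etnppl (ENSMUSG00000019232.14, chromosome 3, 130617448 to 130637521), which encodes a phosphoethanolamine phospho-lyase, had 12.5, 14.4 and 16.9 FPKM in the IPO libraries, against 50.5, 43.3 and 40.2 FPKM in the IR libraries and 12.9, 17.3 and 14.7 FPKM in the sham libraries. For Etnppl the log2 difference was -1.59 (SE 0.16, limma adjusted p = 0.000549). G6pc (ENSMUSG00000078650.2, chromosome 11, 101367561 to 101377903), glucose 6-phosphatase, the last step of glucose release, had 51.5, 62.8 and 28 FPKM in the IPO libraries, against 224, 341 and 275 FPKM in the IR libraries and 22.1, 71.3 and 124 FPKM in the sham libraries. For G6pc the log2 difference was -2.60 (SE 0.54, limma adjusted p = 0.0103). The sham libraries ranged widely for G6pc and all lay under the IR libraries. Pck1, which encodes the cytosolic phosphoenolpyruvate carboxykinase, had 430.4, 574 and 417 FPKM in the IPO libraries, against 959, 1335 and 989 FPKM in the IR libraries, a log2 difference of -1.21 (SE 0.26, limma adjusted p = 0.0117). Bcat2, Hgd and Oat, enzymes of branched-chain, tyrosine and ornithine metabolism, had log2 differences of -0.87, -0.79 and -0.78, all past the threshold.

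In the urea cycle and ammonia list, 5 of 14 tested genes fell, 0 rose and the median was -0.26. This count was 0 on leaving out any IPO library or IR replicate 2, 1 on leaving out IR replicate 1, 2 on leaving out IR replicate 3 and 3 on leaving out sham replicate 1, so no single member is described as changed. Lipogenesis and elongation genes were mixed, 3 of 26 higher (11.5%) and 6 lower (23.1%), against 12% and 10.1% of all genes, with a median of -0.43. The higher count was 0 on leaving out IPO replicate 1, IPO replicate 3 or IR replicate 2 and 1 on leaving out IPO replicate 2 or sham replicate 1, and the lower count 3 on leaving out IR replicate 1. Fads2, the delta-6 desaturase of polyunsaturated fatty acids, had 77.5, 93.4 and 91.4 FPKM in the IPO libraries, against 223, 172 and 163 FPKM in the IR libraries, a log2 difference of -1.08 (SE 0.18, limma adjusted p = 0.00423). Agpat2, an acyltransferase of triglyceride and phospholipid synthesis, had 33.7, 37.4 and 47.9 FPKM in the IPO libraries, against 84.9, 77.4 and 77.9 FPKM in the IR libraries, a log2 difference of -1.02 (SE 0.14, limma adjusted p = 0.00191). Elovl3, an elongase of very long chain fatty acids, had a log2 difference of -1.35 (SE 0.24, limma adjusted p = 0.00579). Each of these 3 genes was lower in every IPO library than in any IR library.

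Among 27 tested bile acid genes 6 fell and 1 rose, with a median of -0.32. The lower count was 3 on leaving out IPO replicate 2 or IR replicate 2, and the higher count 0 on leaving out IPO replicate 1, IPO replicate 3, IR replicate 1, IR replicate 3 or sham replicate 2. Cyp8b1 (ENSMUSG00000050445.4, chromosome 9, 121914356 to 121916305), the sterol 12-alpha-hydroxylase that sets the share of cholic acid, had 84.6, 152 and 119.6 FPKM in the IPO libraries, against 501, 423 and 222 FPKM in the IR libraries, a log2 difference of -1.64 (SE 0.30, limma adjusted p = 0.00645). Abcb4, the canalicular phospholipid exporter, had 22.9, 33.4 and 33.9 FPKM in the IPO libraries, against 76.5, 63.9 and 56 FPKM in the IR libraries, a log2 difference of -1.12 (SE 0.19, limma adjusted p = 0.00430). Amacr, a racemase of branched fatty acid and bile acid side chain oxidation, had -0.62 (SE 0.12, limma adjusted p = 0.00864). Abca1 (ENSMUSG00000015243.4, chromosome 4, 53030787 to 53159895), the cholesterol exporter that starts high density lipoprotein formation, rose, with 93.9, 80.3 and 82.9 FPKM in the IPO libraries, against 20.4, 14.1 and 14.7 FPKM in the IR libraries and 89.2, 62.6 and 35.4 FPKM in the sham libraries. For Abca1 the log2 difference was 2.37 (SE 0.29, limma adjusted p = 0.00116). Of 27 cholesterol synthesis genes 2 were called higher (7.41%, under the 12% of all genes) and 0 lower. The higher count was 0 on leaving out IPO replicate 1 or 2 and 1 on leaving out IPO replicate 3, IR replicate 1, IR replicate 2 or sham replicate 1.

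Drug-metabolising enzymes did not move as a family. Among 38 P450s of families 1 to 3, 4 rose (10.5%) and 3 fell (7.89%), under the 12% and 10.1% of all genes. The median was -0.21 although the mean over members was slightly higher in IPO. The number that fell was 0 on leaving out IPO replicate 1 or 3 and 1 on leaving out IPO replicate 2. Those that rose were Cyp2b10, Cyp2c29, Cyp2c70 and Cyp3a13. Cyp2c70 (ENSMUSG00000060613.10, chromosome 19, 40153353 to 40187333), which makes muricholic acids in rodents, had 347, 239 and 195 FPKM in the IPO libraries, against 46.7, 52.7 and 56.6 FPKM in the IR libraries and 108, 115 and 91.1 FPKM in the sham libraries. For Cyp2c70 the log2 difference was 2.27 (SE 0.20, limma adjusted p = 0.000318). Its sham libraries lay between both other groups. Cyp2c29 had 783, 528 and 607 FPKM in the IPO libraries, against 103, 211 and 181 FPKM in the IR libraries, a log2 difference of 2.00 (SE 0.27, limma adjusted p = 0.00168), and Cyp3a13 0.75 (SE 0.13, limma adjusted p = 0.00557). Sult1e1, the oestrogen sulphotransferase gene, was near 0 in IR, with 4.68, 3.04 and 1.96 FPKM in the IPO libraries, against 0, 0.0659 and 0.0649 FPKM in the IR libraries, a log2 difference of 2.71 (SE 0.32, limma adjusted p = 0.000991). Members of the Cyp2c cluster are close copies, and reads may be split among them.

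Transcription factors that set hepatocyte identity changed in both directions. Of 29 tested, 5 rose and 8 fell, with a median of -0.30 that became positive when genes under a mean of 5 FPKM were left out. The first count was 3 on leaving out any IPO library or IR replicate 1, and the second 3 on leaving out IPO replicate 1 or 2 and 4 on leaving out IPO replicate 3, IR replicate 2 or sham replicate 1. Onecut1 (ENSMUSG00000043013.10, chromosome 9, 74861921 to 74891781), also called HNF6, had 7.69, 6.11 and 5.91 FPKM in the IPO libraries, against 1.30, 1.14 and 1.71 FPKM in the IR libraries and 12.4, 8.40 and 6.39 FPKM in the sham libraries. For Onecut1 the log2 difference was 1.91 (SE 0.23, limma adjusted p = 0.00107). Its paralogue Onecut2 had 11.6, 11.4 and 12.5 FPKM in the IPO libraries, against 3.91, 6.31 and 6.53 FPKM in the IR libraries, a log2 difference of 1.05 (SE 0.19, limma adjusted p = 0.00631). Cebpa (ENSMUSG00000034957.10, chromosome 7, 35119293 to 35121928), which drives metabolic genes of the mature hepatocyte, had 38, 63.5 and 48.2 FPKM in the IPO libraries, against 173, 114 and 119.6 FPKM in the IR libraries and 95.5, 78.7 and 82.4 FPKM in the sham libraries. For Cebpa the log2 difference was -1.44 (SE 0.21, limma adjusted p = 0.00280). Both Onecut genes were thus higher and Cebpa lower in every IPO library.

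Genes of the periportal and pericentral ends of the liver lobule were called in both directions, and most did not pass. Of 19 periportal genes 7 fell and 2 rose, with a median of -0.41, and of 17 pericentral genes 5 fell and 2 rose, with a median of -0.32. The periportal counts were 3 on leaving out IPO replicate 2 or 3 and 4 on leaving out IPO replicate 1, IR replicate 1 or 2 for the falls and 0 on leaving out IPO replicate 1 and 1 on leaving out IPO replicate 2, IPO replicate 3, IR replicate 1 or 3 for the rises. The pericentral fall count was 3 on leaving out IPO replicate 3, IR replicate 1 or 3. Ahr, the aryl hydrocarbon receptor gene of the pericentral list, rose, with 34.5, 32 and 33.3 FPKM in the IPO libraries, against 13.4, 12.8 and 15.8 FPKM in the IR libraries, a log2 difference of 1.22 (SE 0.17, limma adjusted p = 0.00186). Aldh3a2, a fatty aldehyde dehydrogenase gene of the same list, fell, with 36.2, 45.4 and 51 FPKM in the IPO libraries, against 99.7, 86.5 and 93.9 FPKM in the IR libraries, a log2 difference of -1.08 (SE 0.17, limma adjusted p = 0.00339).

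Ribosome biogenesis factors, which make ribosomal RNA and assemble ribosomal subunits in the nucleolus, were higher in IPO. Of 45 tested, 32 rose and 1 fell, with a median of 0.71. The number that rose was 21 on leaving out IPO replicate 1, and 20 among genes averaging 5 FPKM or more. The mean over members was 3.48, 3.40 and 3.39 in the IPO libraries, against 2.79, 2.73 and 2.60 in the IR libraries and 3.29, 3.23 and 3.12 in the sham libraries. The IPO libraries were the highest, the IR libraries the lowest and the sham libraries lay between them. Gnl3 (ENSMUSG00000042354.6, chromosome 14, 31012434 to 31019089), which encodes nucleostemin, had 50.5, 54.2 and 51.3 FPKM in the IPO libraries, against 17.1, 22.9 and 18.3 FPKM in the IR libraries and 36.5, 32.7 and 33.3 FPKM in the sham libraries. For Gnl3 the log2 difference was 1.41 (SE 0.13, limma adjusted p = 0.000402). Wdr43, a factor of the small subunit processome, had 27.7, 24.9 and 25.6 FPKM in the IPO libraries, against 9.86, 9.33 and 8.11 FPKM in the IR libraries, a log2 difference of 1.47 (SE 0.14, limma adjusted p = 0.000426). Ddx21, a nucleolar RNA helicase, had 32.7, 30.1 and 27.5 FPKM in the IPO libraries, against 14.4, 12.6 and 12.3 FPKM in the IR libraries, a log2 difference of 1.17 (SE 0.12, limma adjusted p = 0.000620). Rrs1, a large subunit assembly factor, had a log2 difference of 1.42 (SE 0.15, limma adjusted p = 0.000706). The gene that fell was Ubtf, the upstream binding factor of RNA polymerase I, chosen after its values were seen (-0.53, adjusted p = 0.0334), and its call was absent without any 1 of the 3 IPO libraries or of IR replicates 1 and 2.

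The parts of the ribosome itself shifted less. All 83 cytosolic ribosomal protein genes had a positive difference, with a median of 0.28, yet 2 were called. That count was 1 on leaving out any IPO library, IR replicate 1, IR replicate 2, sham replicate 1 or 2 and 16 on leaving out IR replicate 3, and 20 with quantile normalization. Of the 2, Rpl7l1 is a ribosome biogenesis paralogue rather than a ribosomal protein, with 32.6, 28.8 and 31.2 FPKM in the IPO libraries, against 17.1, 17.8 and 17.8 FPKM in the IR libraries, a log2 difference of 0.80 (SE 0.16, limma adjusted p = 0.00838). Of 77 mitochondrial ribosomal protein genes 7 rose (9.09%, under the 12% of all genes) and 0 fell, with a median of 0.08. The number that rose was 1 on leaving out IPO replicate 2 or 3, 2 on leaving out IPO replicate 1 or IR replicate 2, 3 on leaving out IR replicate 1 and 4 on leaving out sham replicate 1.

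Among 57 genes with names of translation factors, 12 rose and 2 fell, with a median of 0.18, and the number that fell was 0 on leaving out any IPO library, sham replicate 1 or 2 and 1 on leaving out IR replicate 1 or 3. Eif1a, which helps to select the start codon, had 72.2, 80.3 and 70.1 FPKM in the IPO libraries, against 20.3, 29.4 and 30.0 FPKM in the IR libraries, a log2 difference of 1.48 (SE 0.20, limma adjusted p = 0.00191). Eef1e1, a component of the aminoacyl-tRNA synthetase complex, had 21.7, 21.7 and 20.7 FPKM in the IPO libraries, against 4.12, 7.97 and 10.0 FPKM in the IR libraries, a log2 difference of 1.56 (SE 0.27, limma adjusted p = 0.00530). The list also holds regulators that restrain translation, and among these the kinase gene Eif2ak4 rose (0.81, adjusted p = 0.00491). Splicing factors and RNA-binding proteins followed, with 23 of 116 higher, 1 lower and a median of 0.26. The number that rose was 4 on leaving out IPO replicate 1, 7 on leaving out IPO replicate 3, 9 on leaving out IPO replicate 2, 12 on leaving out IR replicate 2, 14 on leaving out sham replicate 1 or 2 and 15 on leaving out IR replicate 1, and the number that fell 0 on leaving out any IPO library, IR replicate 2 or sham replicate 1 and 3 on leaving out IR replicate 1. Srsf1, a splicing activator, had 13, 13.6 and 13.1 FPKM in the IPO libraries, against 5.76, 5.82 and 6.59 FPKM in the IR libraries, a log2 difference of 1.07 (SE 0.15, limma adjusted p = 0.00216). Srsf2, another of the same family, had 0.83 (SE 0.15, limma adjusted p = 0.00585).

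Zinc finger protein genes, most of which encode DNA-binding repressors, were often called higher. Of 174 tested, 58 rose and 10 fell, with a median of 0.42. The number that rose was 36 on leaving out IPO replicate 1, 37 on leaving out IPO replicate 3 and 38 on leaving out IPO replicate 2. It was 8 among genes averaging 5 FPKM or more, where the median was 0.06, so the rises were mostly in genes under that level. Zfp397 had 5.55, 5.58 and 4.44 FPKM in the IPO libraries, against 1.45, 1.98 and 1.73 FPKM in the IR libraries, a log2 difference of 1.36 (SE 0.14, limma adjusted p = 0.000706). Zfp113 had 2.59, 2.71 and 2.95 FPKM in the IPO libraries, against 0.449, 0.933 and 0.536 FPKM in the IR libraries, a log2 difference of 1.53 (SE 0.17, limma adjusted p = 0.000869). Zfp395 fell, with 1.55, 2.08 and 1.53 FPKM in the IPO libraries, against 5.88, 6.73 and 5.19 FPKM in the IR libraries, a log2 difference of -1.54 (SE 0.16, limma adjusted p = 0.000706). The number that fell was 4 on leaving out IPO replicate 3 and 6 on leaving out IPO replicate 2 or IR replicate 2. Many of these genes are close copies, and reads may be split among them.

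Several circadian clock genes were lower in IPO. Of 16 tested, 8 fell and 0 rose, with a median of -1.01, and the mean over members was 2.48, 2.54 and 2.48 in the IPO libraries, against 3.50, 3.21 and 3.39 in the IR libraries and 2.42, 2.61 and 3.16 in the sham libraries. The IPO libraries lay close together, and sham replicate 3 stood near the IR libraries. Nr1d1 (ENSMUSG00000020889.11, chromosome 11, 98767932 to 98775333), the repressor REV-ERB alpha, had 16, 17.2 and 16.1 FPKM in the IPO libraries, against 50.9, 42.5 and 34.4 FPKM in the IR libraries and 11.3, 8.57 and 11 FPKM in the sham libraries. For Nr1d1 the log2 difference was -1.33 (SE 0.16, limma adjusted p = 0.00118). Arntl (ENSMUSG00000055116.8, chromosome 7, 113207465 to 113314126), also called Bmal1, an activator of the core loop, had 1.04, 1.06 and 1.28 FPKM in the IPO libraries, against 3.08, 4.19 and 3.08 FPKM in the IR libraries and 2.45, 2.15 and 1.14 FPKM in the sham libraries. For Arntl the log2 difference was -1.27 (SE 0.23, limma adjusted p = 0.00566). Bhlhe40, a repressor of that loop, had 27.1, 25.2 and 26.6 FPKM in the IPO libraries, against 97.1, 50.8 and 67.3 FPKM in the IR libraries, a log2 difference of -1.38 (SE 0.22, limma adjusted p = 0.00406). The activator Arntl and the repressors Nr1d1 and Bhlhe40 were all lower. The labels do not give the time of day at which livers were taken, so its part in the difference was not tested.

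Glucocorticoid-responsive genes overlapped with this list and with the immediate early genes. Of 18 tested, 7 fell and 1 rose, with a median of -0.50. Per1, a clock repressor that glucocorticoids also induce, had 6.82, 6.33 and 4.77 FPKM in the IPO libraries, against 14.8, 11.6 and 10.7 FPKM in the IR libraries, a log2 difference of -0.99 (SE 0.18, limma adjusted p = 0.00567). The single rise was that of Sult1e1, given above.

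Heat shock chaperones that passed the test were lower in IPO. Of 34 tested, 9 fell and 0 rose, with a median of -0.24. Those that fell numbered 4 on leaving out IPO replicate 1, IPO replicate 2 or IR replicate 2 and 5 on leaving out IR replicate 3, and the number that rose was 2 on leaving out IR replicate 1. These genes are driven by HSF1 at heat shock elements, inverted repeats of GAA. The Hspa1a promoter is shown with the inverted pair GAANNTTC, which reads the same on both strands, in capitals. It is chr17:34972107-34972406 on the minus strand of GRCm38.p6, from RefSeq, with 250 bases before and 50 bases after the start.
Hspa1a: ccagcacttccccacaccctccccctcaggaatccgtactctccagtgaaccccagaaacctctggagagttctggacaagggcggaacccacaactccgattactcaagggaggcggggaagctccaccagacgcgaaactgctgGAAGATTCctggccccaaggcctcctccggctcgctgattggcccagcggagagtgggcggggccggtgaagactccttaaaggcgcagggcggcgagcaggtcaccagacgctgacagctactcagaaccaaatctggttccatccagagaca
The pair was found in 11 of the 27 heat shock genes with a window (40.7%), against 5.8% of the windows of tested genes and 7.86% of all windows. The Hspa1b window was identical at 296 of its 300 bases. Hspa1a and Hspa1b encode nearly the same inducible HSP70 protein, so reads may be split between them.

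Hspa1a had 1.50, 1.65 and 0.915 FPKM in the IPO libraries, against 6.30, 10.7 and 11.5 FPKM in the IR libraries and 1.62, 3.12 and 8.71 FPKM in the sham libraries. For Hspa1a the log2 difference was -2.41 (SE 0.46, limma adjusted p = 0.00752). Hspa1b had 5.44, 5.21 and 2.73 FPKM in the IPO libraries, against 13.5, 41.7 and 38.6 FPKM in the IR libraries and 5.95, 17.4 and 27.2 FPKM in the sham libraries. For Hspa1b the log2 difference was -2.58 (SE 0.56, limma adjusted p = 0.0126), and its adjusted p was 0.0506 on leaving out IPO replicate 3. Sham values of both genes ran from the IPO level to near the IR level. Dnajb4, a cochaperone of HSP70, had 2.01, 2.98 and 3.23 FPKM in the IPO libraries, against 7.34, 10.8 and 11 FPKM in the IR libraries, a log2 difference of -1.66 (SE 0.24, limma adjusted p = 0.00243). Hsph1, a nucleotide exchange factor of HSP70, had 4.17, 4.94 and 8.01 FPKM in the IPO libraries, against 12.7, 18.5 and 19.8 FPKM in the IR libraries, a log2 difference of -1.52 (SE 0.30, limma adjusted p = 0.00876). For all 4 genes each IPO library lay under each IR library, a separation shared by nearly all called genes.

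Genes of the unfolded protein response did not move as a group, with 4 of 38 tested higher (10.5%) and 1 lower (2.63%). Both shares were under the 12% and 10.1% of all genes. The lower count was 2 on leaving out IR replicate 3, sham replicate 2 or 3. The median was -0.02, while the mean over members was slightly higher in IPO. Xbp1 (ENSMUSG00000020484.18, chromosome 11, 5520659 to 5525893), the transcription factor of the IRE1 branch and of secretory capacity, had 175, 143 and 162 FPKM in the IPO libraries, against 56.5, 50.6 and 51.7 FPKM in the IR libraries and 203, 188 and 114 FPKM in the sham libraries. For Xbp1 the log2 difference was 1.58 (SE 0.20, limma adjusted p = 0.00134). Atf6, the sensor of another branch, had 0.80 (SE 0.14, limma adjusted p = 0.00500). Herpud1, an adaptor of endoplasmic reticulum-associated degradation, fell, with 123, 73.6 and 59.4 FPKM in the IPO libraries, against 352, 452 and 305 FPKM in the IR libraries, a log2 difference of -2.16 (SE 0.40, limma adjusted p = 0.00684). In the integrated stress response list 3 of 22 rose and 6 fell, with a median of -0.29, and the number that fell was 2 on leaving out IPO replicate 2 or IR replicate 1 and 3 on leaving out IPO replicate 1 or IR replicate 2. Gdf15, a stress-induced cytokine, had 24.1, 24.8 and 44.4 FPKM in the IPO libraries, against 86.3, 178 and 173 FPKM in the IR libraries and 10.1, 10.9 and 32.7 FPKM in the sham libraries. For Gdf15 the log2 difference was -2.20 (SE 0.46, limma adjusted p = 0.0104). Sesn2, an inhibitor of mTORC1, had 1.86, 2.47 and 1.50 FPKM in the IPO libraries, against 6.06, 5.62 and 5.95 FPKM in the IR libraries, a log2 difference of -1.40 (SE 0.17, limma adjusted p = 0.00118).

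Targets of p53 and the Gadd45 family were lower in 8 of 20 tested genes and higher in 2, with a median of -0.50. The higher count was 1 on leaving out any IPO library, IR replicate 1, IR replicate 2, sham replicate 1 or 3. Gadd45a (ENSMUSG00000036390.8, chromosome 6, 67035096 to 67037457), a growth arrest and stress sensor protein, had 5.85, 10.4 and 5.75 FPKM in the IPO libraries, against 52.4, 41.6 and 50.2 FPKM in the IR libraries and 9.66, 5.17 and 21.2 FPKM in the sham libraries. For Gadd45a the log2 difference was -2.68 (SE 0.42, limma adjusted p = 0.00341). Gadd45b had 14.7, 20.5 and 15.2 FPKM in the IPO libraries, against 114, 81.9 and 80.1 FPKM in the IR libraries, a log2 difference of -2.42 (SE 0.24, limma adjusted p = 0.000578). Bbc3, which encodes the pro-apoptotic protein PUMA, had 0.405, 1.08 and 0.937 FPKM in the IPO libraries, against 3.63, 4.39 and 6.51 FPKM in the IR libraries, a log2 difference of -2.04 (SE 0.26, limma adjusted p = 0.00134). Of 30 cell death regulators 2 rose (6.67%) and 3 fell (10%), no more than the 12% and 10.1% of all genes. The number that rose was 1 on leaving out any IPO library or IR replicate 1 and 6 on leaving out IR replicate 3. The pro-apoptotic BCL-2 relatives Bik and Bok fell (-1.22, adjusted p = 0.00107 and -1.36, adjusted p = 0.00191), and Tnfrsf12a, the receptor of TWEAK, rose, with 46.7, 105 and 88.2 FPKM in the IPO libraries, against 33.9, 16.2 and 21.4 FPKM in the IR libraries and 15.4, 11.9 and 11.8 FPKM in the sham libraries. For Tnfrsf12a the log2 difference was 1.71 (SE 0.33, limma adjusted p = 0.00729). For Tnfrsf12a each IPO library lay above every sham library as well.

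The hypoxia and glycolysis list held 3 rises and 7 falls among 30 tested genes, with a median of -0.18. Those that fell numbered 1 on leaving out IPO replicate 1 or 3 and 4 on leaving out IPO replicate 2, and the number that rose 5 on leaving out sham replicate 1. The rises were the transcription factor genes themselves. Hif1a (ENSMUSG00000021109.13, chromosome 12, 73901375 to 73947530), the oxygen-regulated alpha subunit of HIF1, had 25.8, 26.8 and 28.2 FPKM in the IPO libraries, against 10.4, 10.3 and 10.1 FPKM in the IR libraries and 21.4, 16.2 and 14.1 FPKM in the sham libraries. For Hif1a the log2 difference was 1.35 (SE 0.15, limma adjusted p = 0.000832). Its partner Arnt had 5.80, 5.75 and 4.89 FPKM in the IPO libraries, against 2.85, 2.95 and 2.84 FPKM in the IR libraries, a log2 difference of 0.82 (SE 0.12, limma adjusted p = 0.00243). Epas1, the alpha subunit of HIF2, had 107, 60.7 and 69.6 FPKM in the IPO libraries, against 37.5, 39.5 and 38 FPKM in the IR libraries, a log2 difference of 0.99 (SE 0.19, limma adjusted p = 0.00737). Pfkfb1, the liver enzyme that sets fructose 2,6-bisphosphate, fell (-1.22, adjusted p = 0.00962). HIF proteins are regulated mainly after translation, which these data do not measure. Among 32 NRF2 antioxidant targets 4 rose and 2 fell, near the background, and the counts were 1 on leaving out IPO replicate 2, IPO replicate 3 or IR replicate 2 and 2 on leaving out sham replicate 2 for the rises and 1 on leaving out any IPO library, IR replicate 2, IR replicate 3, sham replicate 1 or 2 for the falls. Txnrd1, thioredoxin reductase, had 85.7, 95.7 and 85.4 FPKM in the IPO libraries, against 49.9, 45.7 and 46.8 FPKM in the IR libraries, a log2 difference of 0.90 (SE 0.15, limma adjusted p = 0.00407). The largest difference of this list was a fall, that of Osgin1 (-3.46), given above among the 12 largest falls.

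Among 29 tested MAP kinase genes 9 rose and 2 fell, with a median of 0.12, which was just negative among genes averaging 5 FPKM or more. Map3k1, an upstream kinase of the JNK branch, had 4.72, 4.93 and 4.81 FPKM in the IPO libraries, against 0.842, 1.46 and 1.75 FPKM in the IR libraries, a log2 difference of 1.56 (SE 0.20, limma adjusted p = 0.00134). Rps6ka3, an ERK-activated kinase gene, had 5.23, 4.63 and 4.68 FPKM in the IPO libraries, against 0.605, 0.902 and 2.42 FPKM in the IR libraries, a log2 difference of 1.69 (SE 0.31, limma adjusted p = 0.00613). Map3k6 rose (1.15, adjusted p = 0.00681). Mapk3, which encodes ERK1, fell, with 6.31, 7.29 and 7.20 FPKM in the IPO libraries, against 12.2, 10.9 and 12.6 FPKM in the IR libraries, a log2 difference of -0.74 (SE 0.14, limma adjusted p = 0.00689). Of 12 MAP kinase phosphatases and Sprouty-type inhibitors 2 rose and 3 fell, and the number that rose was 1 on leaving out IPO replicate 2 or 3. Dusp6, an ERK phosphatase induced by ERK, fell (-2.14, adjusted p = 0.0105), and Spred1, an inhibitor of Ras signalling, rose (1.44, adjusted p = 0.00775).

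Markers of other cell types were read beside these results. No Kupffer cell marker of 11 passed, and their median of -0.47 turned positive without IR replicate 3, while 3 were called lower in IPO without IR replicate 2. The summed Kupffer markers were 194 to 228 FPKM in IPO, against 175 to 642 FPKM in IR. Of 11 sinusoidal endothelial markers 3 fell and 1 rose, with a median of -0.54 and sums of 96.1 to 102 FPKM in IPO, against 108 to 176 FPKM in IR. Kdr, the vascular endothelial growth factor receptor, had 3.40, 2.59 and 3.38 FPKM in the IPO libraries, against 6.95, 6.78 and 8.70 FPKM in the IR libraries, a log2 difference of -1.14 (SE 0.18, limma adjusted p = 0.00334). Ehd3, a membrane trafficking gene of these cells, had 12.6, 12.6 and 14.4 FPKM in the IPO libraries, against 28.6, 28.6 and 42.2 FPKM in the IR libraries, a log2 difference of -1.28 (SE 0.20, limma adjusted p = 0.00334). The one rise in that list, of the hyaluronan receptor gene Lyve1, had an adjusted p of 0.0692 on leaving out IPO replicate 1, 0.0951 on leaving out IPO replicate 2, 0.0612 on leaving out IPO replicate 3 and 0.0568 on leaving out IR replicate 1. Of 12 stellate cell markers 1 fell, the collectin gene Colec11, whose adjusted p of 0.0471 became 0.0527 to 0.151 when any 1 library was left out. The summed stellate markers were 169.6 to 201 FPKM in IPO, against 159 to 238 FPKM in IR. On the log2(FPKM + 0.5) scale IR replicate 3 had the highest mean of all 9 libraries in both lists. Its mean over the sinusoidal markers was 3.785, against 3.119 and 3.207 in the other IR libraries. For the stellate markers it was 3.15, against 2.365 and 2.52.

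Of 7 neutrophil markers 3 rose and 0 fell, with a median of 1.24 and sums of 50.1 to 132 FPKM in IPO, against 11.4 to 74.9 FPKM in IR and 65.4 to 94.2 FPKM in sham. The number that rose was 1 on leaving out IPO replicate 2, IPO replicate 3, IR replicate 1 or 2 and 5 on leaving out IR replicate 3. Clec4d, a C-type lectin of myeloid cells, had 1.78, 2.43 and 2.78 FPKM in the IPO libraries, against 0.153, 0.280 and 1.02 FPKM in the IR libraries and 1.07, 1.05 and 2.25 FPKM in the sham libraries. For Clec4d the log2 difference was 1.61 (SE 0.34, limma adjusted p = 0.0110). S100a8 and S100a9, chosen after their values were seen as the most abundant members, were not called (1.55, adjusted p = 0.104 and 1.56, adjusted p = 0.0969), and IPO replicate 1 overlapped with IR replicate 3 for both. Lcn2 is also made by neutrophils, and the part of these cells in the Lcn2 difference was not tested. Among 5 erythroid markers 1 fell and 0 rose, with sums of 357 to 509 FPKM in IPO, against 579 to 1196 FPKM in IR, and the number that fell was 0 on leaving out any IPO library and 2 on leaving out sham replicate 1 or 2. Of 4 monocyte markers 1 rose, and that count was 0 on leaving out IPO replicate 2, IPO replicate 3, IR replicate 1 or 2 and 2 on leaving out IR replicate 3. Of 4 cholangiocyte markers 2 fell, and that count was 0 on leaving out any IPO library and 1 on leaving out IR replicate 2, IR replicate 3, any sham library. Neither platelet marker tested nor the single T and NK cell marker tested, Gzma, was called. On the log2(FPKM + 0.5) scale Gzma was 3.47 in IR replicate 3, against -0.64 and 0.13 in the other IR libraries. The T and NK cell markers Nkg7, Gzmb, Cd3e and Cd3d, under the level tested, were also highest in IR replicate 3. Both B cell markers in the table, Cd79a and Cd79b, were under the level tested.

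Several large families served as a contrast. None of the 78 nuclear-encoded oxidative phosphorylation genes and none of the 13 mitochondrially encoded transcripts passed, with medians of 0.03 and 0.35, although 6 mitochondrial transcripts were called higher without IR replicate 3 and 1 on leaving out sham replicate 3. Of 45 proteasome genes 2 fell (4.44%, under the 10.1% of all genes) and 0 rose. The number that fell was 0 on leaving out any IPO library, IR replicate 3 or sham replicate 2 and 1 on leaving out IR replicate 1, sham replicate 1 or 3. Solute carriers were called near the background in both directions, 24 higher and 28 lower of 183, and the counts were 14 on leaving out IPO replicate 1 and 15 on leaving out IPO replicate 2 or 3 for the rises and 9 on leaving out IPO replicate 1, 10 on leaving out IPO replicate 3, 15 on leaving out IPO replicate 2 and 18 on leaving out IR replicate 2 for the falls. Single carriers stood out. Slc37a1 (ENSMUSG00000024036.15, chromosome 17, 31295483 to 31350696), a sugar phosphate exchanger, had 8.13, 10.2 and 7.37 FPKM in the IPO libraries, against 0.406, 0.358 and 0.841 FPKM in the IR libraries, a log2 difference of 3.15 (SE 0.30, limma adjusted p = 0.000426). Slc10a2, the apical bile acid transporter, had 48.5, 45.3 and 48.4 FPKM in the IPO libraries, against 2.55, 5.51 and 11.8 FPKM in the IR libraries and 28.9, 23.9 and 15.9 FPKM in the sham libraries. For Slc10a2 the log2 difference was 2.97 (SE 0.42, limma adjusted p = 0.00240). For Slc10a2 every IPO library lay above every sham library.

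Of 49 deubiquitinases 7 rose (14.3%) and 2 fell (4.08%), against 12% and 10.1% of all genes. The number that rose was 2 on leaving out IPO replicate 3, 3 on leaving out IPO replicate 1 and 4 on leaving out IPO replicate 2. Otud1, an inducible member, had 1.48, 2.88 and 2.28 FPKM in the IPO libraries, against 11.7, 13.5 and 19.6 FPKM in the IR libraries, a log2 difference of -2.51 (SE 0.25, limma adjusted p = 0.000496). Of 78 chromatin modifiers 8 rose (10.3%) and 7 fell (8.97%), near the shares of all genes. The number that rose was 2 without IPO replicate 3 and 3 without IPO replicate 1 or 2. The number that fell was 3 without IPO replicate 3 and 4 without IPO replicate 1, IPO replicate 2 or IR replicate 2. Chd9, a chromatin remodeller also known as a PPARA coactivator, had 23.7, 19.7 and 20.1 FPKM in the IPO libraries, against 3.33, 4.55 and 6.66 FPKM in the IR libraries, a log2 difference of 2.06 (SE 0.26, limma adjusted p = 0.00129). Akr1b7, an aldose reductase family member, had 4.97, 3.67 and 2.64 FPKM in the IPO libraries, against 0.113, 0.255 and 0.488 FPKM in the IR libraries and 0.373, 0.498 and 0.733 FPKM in the sham libraries. For Akr1b7 the log2 difference was 2.43 (SE 0.26, limma adjusted p = 0.000698), and each of its IPO libraries lay above every sham library. The median and the mean over members differed in sign in the chemokine, coagulation, iron, P450, NRF2, unfolded protein response, chromatin, proteasome, solute carrier, YAP target and male-biased lists. Of 73 lists with at least 3 tested members, 12 had a median log2 difference of at least 0.5 in either direction. The plot of the lists with at least 10 tested members sets the shares called in each direction beside the background.

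**Figure D4:**
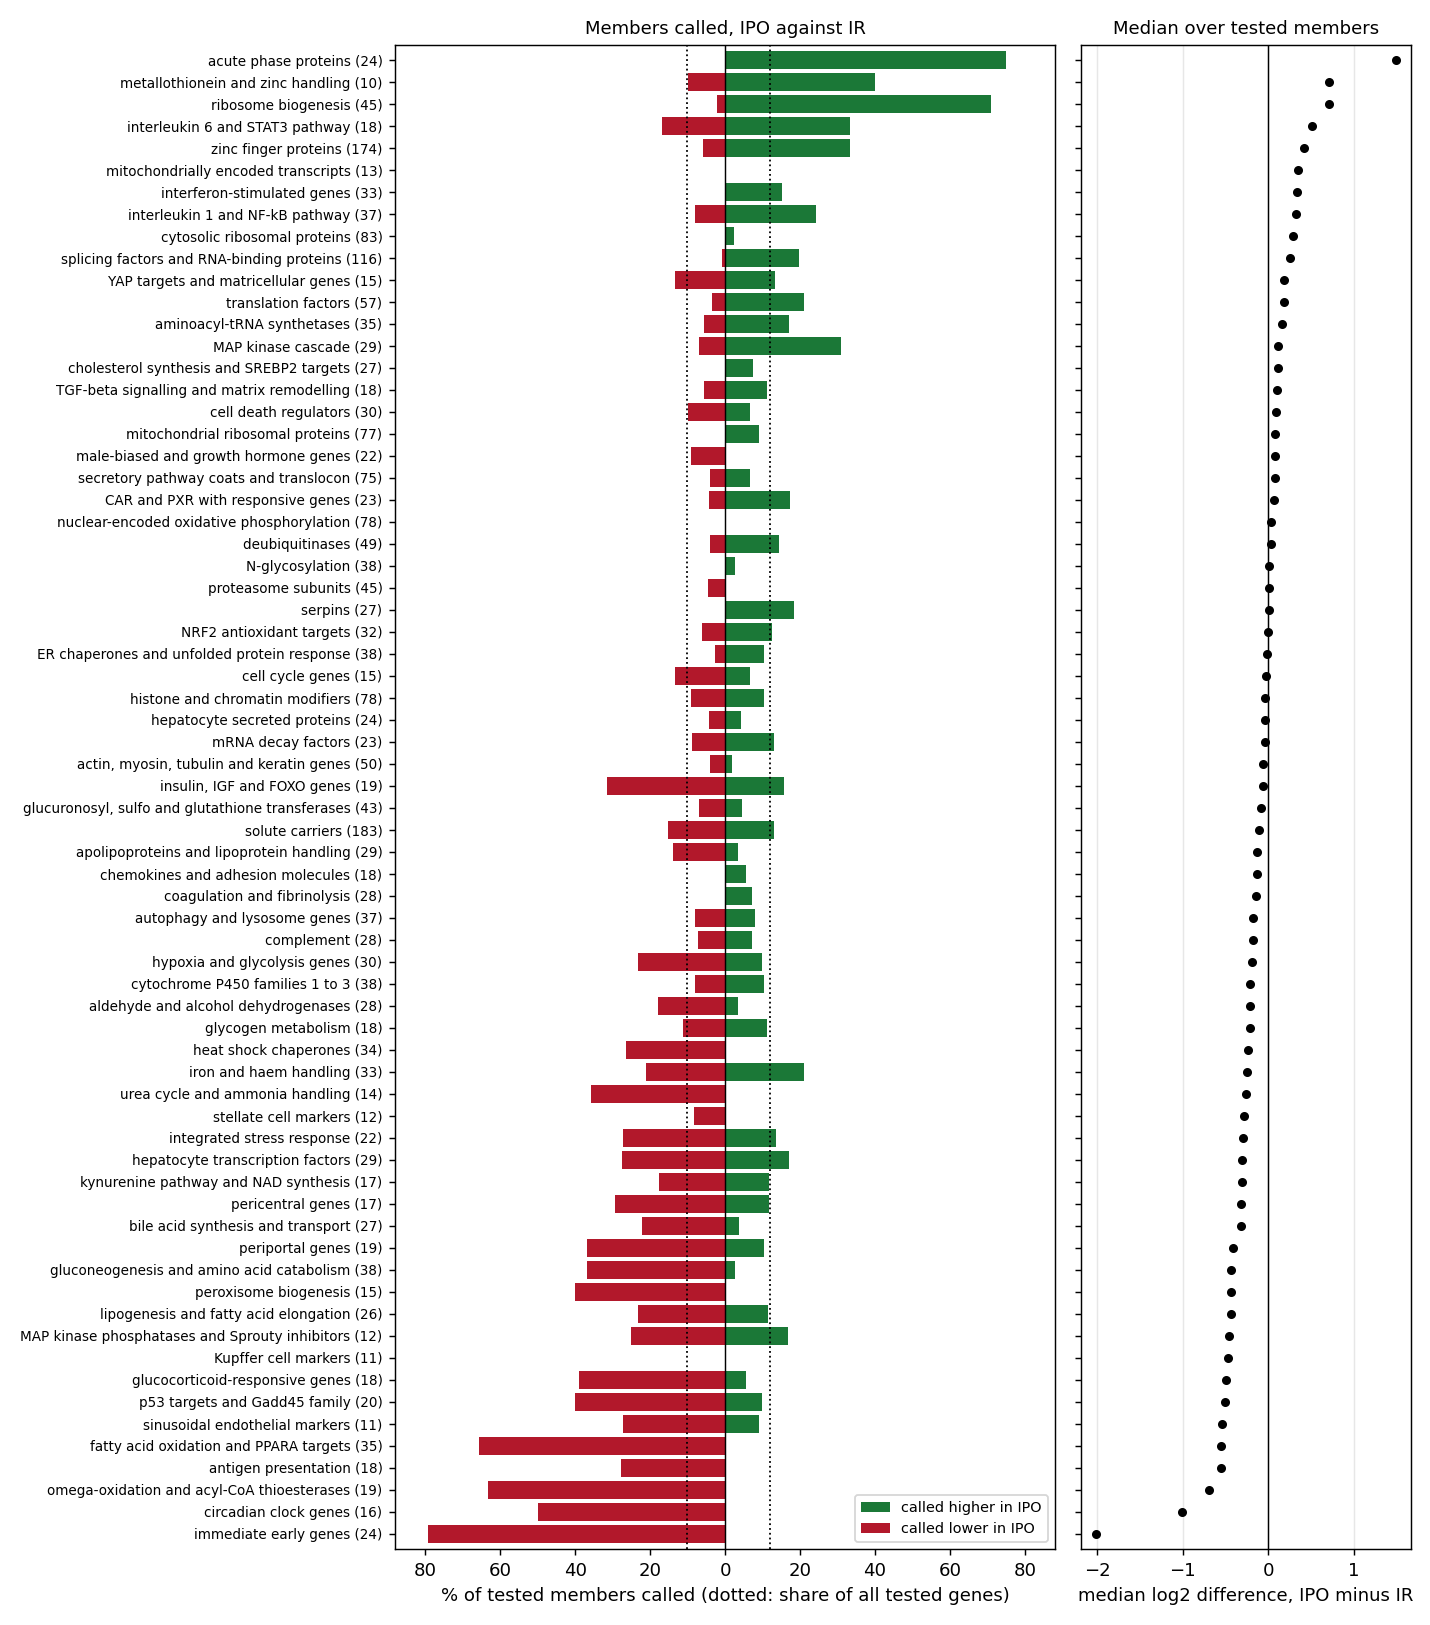
Left panel, percent of the tested members of each gene list (number in brackets) called higher in IPO (right of 0) or lower in IPO (left of 0), with dotted lines at the shares of all tested genes, 12% and 10.1%. Right panel, median log2 difference over the tested members. Lists with fewer than 10 tested members are not drawn. Acute phase proteins and ribosome biogenesis extend furthest on the higher side, and immediate early genes, fatty acid oxidation and omega-oxidation on the lower side.

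Genes called between IPO and IR alone were those with an adjusted p under 0.05 here and an unadjusted p of at least 0.05 in both comparisons with sham. There were 243 (2.52%), 91 higher and 152 lower in IPO. For all 243 the sham mean lay between the IPO and IR means, but the rule fixes this in advance. The comparisons of a gene share the same standard error, so a sham mean outside that interval would give a smaller p against sham. A p that misses the threshold does not show that sham was equal to either group. The count was 25 on leaving out IPO replicate 1, 57 on leaving out IPO replicate 2, 38 on leaving out IPO replicate 3, 100 on leaving out IR replicate 1 and 78 on leaving out IR replicate 2. It was 1255 when the other comparisons were held to an adjusted p of at least 0.05. Of the 35 tested fatty acid oxidation genes 5 were among the 243 (14.3%), as were 5 of 45 ribosome biogenesis genes (11.1%), 4 of 14 urea cycle genes (28.6%) and 3 of 15 peroxisome genes (20%). Of 73 lists with at least 3 tested members 37 held none of the 243. Among them were the 24 immediate early, 24 acute phase and 16 circadian clock genes. Because both differences from sham must miss the threshold, a gene whose IPO and IR means lie many standard errors apart cannot meet the rule. These shares therefore also depend on how large the differences of a list were, and are not read as a trait of the family. The number of urea cycle genes called lower in IPO was 0 on leaving out any IPO library, and that of peroxisome genes 0 on leaving out IPO replicate 1 or 2 and 1 on leaving out IPO replicate 3.

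The largest rises of this kind included Sqle (ENSMUSG00000022351.14, chromosome 15, 59315077 to 59331192), squalene epoxidase of cholesterol synthesis, with 14.4, 7.99 and 6.30 FPKM in the IPO libraries, against 1.48, 1.34 and 3.77 FPKM in the IR libraries and 4.17, 1.60 and 10.7 FPKM in the sham libraries. For Sqle the log2 difference was 1.93 (SE 0.57, limma adjusted p = 0.0389). Sham values spanned the distance between the groups. Akap12, a scaffold of protein kinase A, had 6.84, 14.9 and 8.80 FPKM in the IPO libraries, against 3.81, 1.64 and 2.21 FPKM in the IR libraries and 8.93, 4.58 and 2.94 FPKM in the sham libraries. For Akap12 the log2 difference was 1.80 (SE 0.41, limma adjusted p = 0.0144). Mybbp1a, a nucleolar protein, had 19.1, 19.2 and 15 FPKM in the IPO libraries, against 13.6, 9.03 and 5.03 FPKM in the IR libraries, a log2 difference of 1.00 (SE 0.29, limma adjusted p = 0.0370). The other rises were Fmnl2 (a formin), Tnpo1 (a nuclear import receptor), Slc16a12 (a creatine transporter), Ints5 (an Integrator subunit) and Tom1l2, with log2 differences of 1.08, 0.95, 0.88, 0.85 and 0.84.

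Among the falls were 2 nuclear receptor genes of bile acid and drug metabolism. Nr0b2 (ENSMUSG00000037583.2, chromosome 4, 133553376 to 133556536), the corepressor SHP that is induced by bile acids, had 4.66, 1.64 and 3.10 FPKM in the IPO libraries, against 7.08, 41.5 and 42.3 FPKM in the IR libraries and 4.36, 12.6 and 13.3 FPKM in the sham libraries. For Nr0b2 the log2 difference was -2.81 (SE 0.67, limma adjusted p = 0.0181). IR replicate 1 was far under the other IR libraries. Nr1i3 (ENSMUSG00000005677.14, chromosome 1, 171213970 to 171220701), which encodes CAR, had 13, 17.7 and 18 FPKM in the IPO libraries, against 30.9, 52 and 34.1 FPKM in the IR libraries and 14.5, 23.8 and 41.8 FPKM in the sham libraries. For Nr1i3 the log2 difference was -1.22 (SE 0.34, limma adjusted p = 0.0333). CAR transcripts were thus lower while those of Cyp2b10, its known target, were higher. Fgf21 (ENSMUSG00000030827.5, chromosome 7, 45613886 to 45615490), a hormone induced by PPARA and by stress, had 0.527, 1.10 and 2.19 FPKM in the IPO libraries, against 12.4, 14.8 and 6.79 FPKM in the IR libraries and 11.6, 5.15 and 0.973 FPKM in the sham libraries. For Fgf21 the log2 difference was -2.78 (SE 0.67, limma adjusted p = 0.0185). The other falls were Hist1h1c (a linker histone), Fpgs (folylpolyglutamate synthase), Cyp4a32, Slc25a34 (a mitochondrial carrier family member) and Ces2c (a carboxylesterase), with log2 differences of -1.22, -1.17, -1.17, -1.16 and -1.14.

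Each of these 16 genes (Sqle, Akap12, Fmnl2, Mybbp1a, Tnpo1, Slc16a12, Ints5, Tom1l2, Nr0b2, Fgf21, Hist1h1c, Nr1i3, Fpgs, Cyp4a32, Slc25a34 and Ces2c) lost its call between IPO and IR when at least 1 library was left out. The number lost was 12 on leaving out IPO replicate 1, 16 on leaving out IPO replicate 2, 12 on leaving out IPO replicate 3, 10 on leaving out IR replicate 1, 9 on leaving out IR replicate 2, 2 on leaving out IR replicate 3, 2 on leaving out sham replicate 1 and 3 on leaving out sham replicate 2. The adjusted p of the genes lost ran from 0.0504 to 0.141 over these cases. In the fit of the IPO and IR libraries alone the adjusted p of Cyp4a32, Hist1h1c, Mybbp1a and Slc16a12 lay between 0.0524 and 0.0668. The calls of Hist1h1c, Cyp4a32 and Mybbp1a also missed the threshold with quantile normalization, and that of Mybbp1a with median-of-ratios scaling. The call of Fmnl2 was also lost with a pseudocount of 0.1, with no filter on low values, among genes averaging 5 FPKM or more, with robust estimation and with no variance trend, at an adjusted p of 0.0507 to 0.0518. The plot of these 16 genes shows how close their groups lay.

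**Figure D5:**
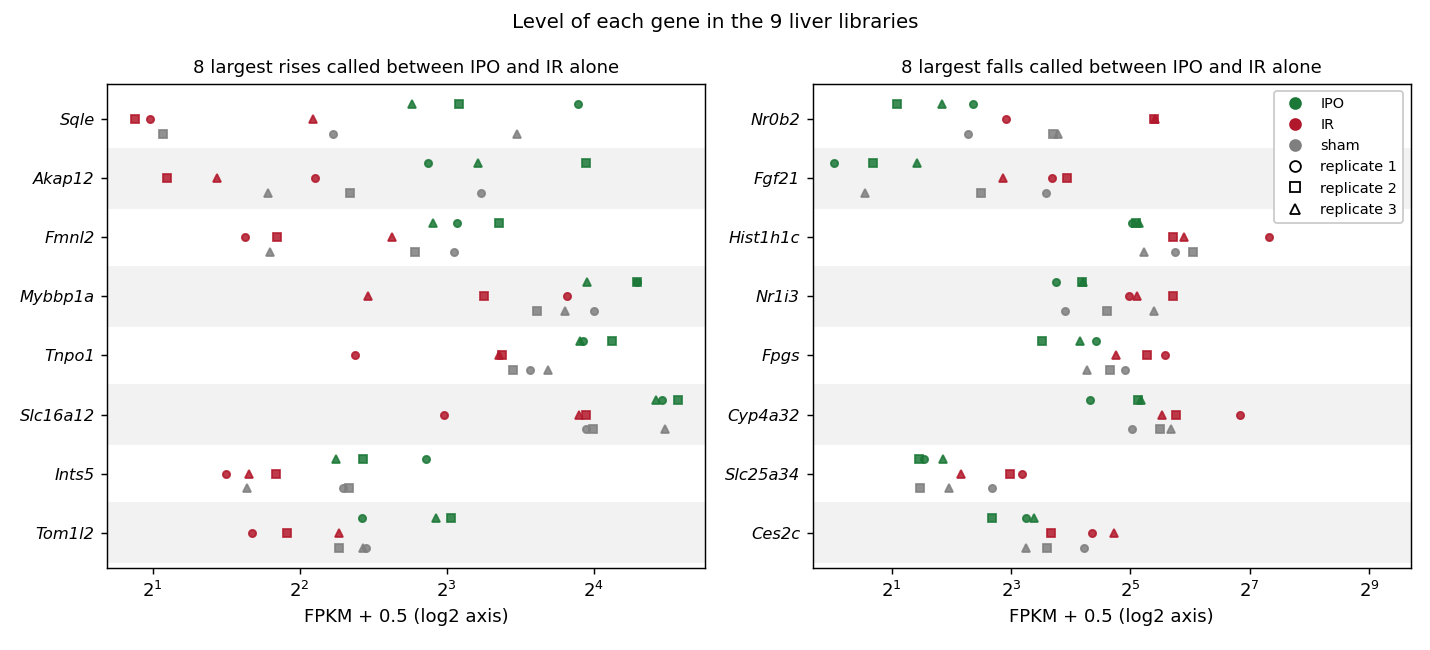
FPKM + 0.5 on a log2 axis for the 8 largest rises (left panel) and 8 largest falls (right panel) among genes called between IPO and IR alone, with 1 point per library, coloured by group (IPO, IR, sham) and shaped by replicate. The IPO and IR points do not overlap in any row, and sham points lie between or among them.

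The authors' deposited tables of genes differing between IPO and IR listed 853 genes as higher and 676 as lower in IPO, with an absolute log2 fold change of at least 0.585 and a p of at most 0.0497. Of the listed genes 1436 were tested here and 1353 were called, all in the direction of the authors' deposited tables. Of the 2133 genes called here, the same 1353 were listed. Both sets of calls come from the same series of libraries, so the shared direction is no independent support. The largest q value in the authors' deposited tables was 0.17, so their lists were not bounded by an adjusted p of 0.05.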

How the data were processed

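RNA was measured by sequencing in 9 mouse liver libraries, 3 each of IPO, IR and sham, grouped by their labels. Replicate numbers only name the libraries, in the order of their records. The authors deposited FPKM values per gene for each library, per the file headers. The genome build was mm10, per the submitters' processing notes. The library kit kept strand, per the labels' protocols, but the aligner, the counting tool and its use of strand were not given in the sources used here, so values of overlapping genes are uncertain. The authors also deposited tables of genes differing between IPO and IR, with log2 fold changes, p-values and q-values per the file headers. They are used for a single comparison at the end of the report. The depth behind the FPKM values is unknown. Among 200 low values per library, 31.5% to 36% came within 0.1 of whole multiples of the best common step. A step fixed beforehand would give 20% by chance, and choosing the best of many steps raises that share. The check therefore shows no clear step, read counts were not recovered and no count test was made.

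From the deposited values, log2(FPKM + 0.5) was computed for the 9649 genes averaging 1 FPKM or more over all 9 libraries. One linear model with 3 group means was fitted in R 4.3.3 with limma 3.58.1, with a variance trend and two-sided tests on 6 residual degrees of freedom and 3.56 prior degrees of freedom. Benjamini-Hochberg adjustment ran over all tested genes, and genes with an adjusted p under 0.05 are called. The procedure was tested on simulated data.

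The 76 gene lists and their members were chosen with earlier results of these data known. Named genes were the 12 largest rises and falls among called genes with separate IPO and IR ranges and an average of 5 FPKM or more in whichever of them was higher, leaving out predicted and clone names, up to 4 members of smallest p per list, and the 8 largest rises and falls among genes called between IPO and IR alone. In several lists only those members are described whose call held when any 1 library was left out. The lists are described by counts and medians, without set tests. For 2 list members, the single-gene values are not reported here. Promoter windows are from RefSeq, GRCm38.p6. A window was found by symbol for 7706 of the tested genes. Same-numbered replicates did not deviate together, since the correlations of their deviations from the group means ran from -0.137 to 0.0653 over 9 pairs and 0 exceeded 0.1. The numbers were therefore not treated as pairs. Alternatives were other pseudocounts, filters, scalings, empirical Bayes settings, a minimum fold, a replicate block, a fit of the IPO and IR libraries alone and each library left out in turn.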

Additional observations from a re-analysis of the deposited data

How the results depend on the processing

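The 12 lists with a median log2 difference of at least 0.5 in size kept its sign under all 19 alternatives, and 11 to 15 lists passed that size. With 1 library left out the genes called between IPO and IR ran from 1085 to 2231, those higher in IPO from 633 to 1261, those lower from 444 to 1011, those called between IPO and IR alone from 25 to 362, those between IPO and sham from 1 to 26 and those between IR and sham from 310 to 1361. Among genes averaging 5 FPKM or more, where fewer genes were tested, 1229 passed (619 higher and 610 lower in IPO), 154 of them alone, and 650 passed between IR and sham. A minimum fold of 2 left 626 genes. An adjusted p of at least 0.05 in both comparisons with sham gave 1255 genes called alone.

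With the replicate number as a block 1672 genes passed between IPO and IR (939 higher and 733 lower), of which 1618 were among the 2133, 136 passed alone, 2 between IPO and sham and 646 between IR and sham. Of the 16 genes named as called alone, Cyp4a32, Fmnl2 and Hist1h1c then had an adjusted p of 0.0554 to 0.087. The numbers showed no pairing, and the cause was not tested. Median-of-ratios scaling gave 1165 higher and 1062 lower calls, quantile normalization 1149 and 1031, and they moved the median over all genes to -0.0092 and -0.0108. Of the named genes 7 changed sign, and the cause was not tested. mt-Nd5 was at -3e-04 with quantile normalization. With 1 library left out the log2 differences ran from -0.1094 (IR replicate 3) to 0.32 for Epcam, with -0.0474 when it was IPO replicate 2, from -0.1899 (IR replicate 1) to 0.9081 for Pf4, from -0.6683 to 0.1073 (IR replicate 3) for Lyz2, from -0.8441 to 0.1178 (IR replicate 3) for Fcgr1, from -1.9214 to 0.1319 (IR replicate 3) for Gzma and from -0.96 to 0.0742 (IR replicate 3) for Ppbp. None of these genes passed the test. Depth is unknown, so counting error could not be set beside these values, and genes of a few FPKM are the least certain.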

Other observations

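Of 19 insulin, IGF and FOXO genes 3 rose and 6 fell, the higher count being 1 on leaving out IPO replicate 1 and the lower count 2 on leaving out IPO replicate 1, IPO replicate 3 or IR replicate 2 and 3 on leaving out IPO replicate 2, IR replicate 1 or sham replicate 2. Foxo3, a transcription factor restrained by insulin, had 3.76, 4.18 and 3.57 FPKM in the IPO libraries, against 9.87, 7.63 and 7.06 FPKM in the IR libraries, with a log2 difference of -0.99 (SE 0.16, limma adjusted p = 0.00408). Gsk3b, a kinase that restrains glycogen synthesis, had 10.5, 11.6 and 11.8 FPKM in the IPO libraries, against 5.62, 6.89 and 7.82 FPKM in the IR libraries, a log2 difference of 0.71 (SE 0.14, limma adjusted p = 0.00845). Foxo3 was lower and Gsk3b higher in every IPO library than in any IR library.

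Among 15 YAP targets and Hippo pathway genes 2 rose and 2 fell (13.3% each), against 12% and 10.1% of all genes. The median was 0.19, whereas the mean over members was lower in IPO. Yap1 itself, the coactivator, had 13.5, 15.7 and 13.1 FPKM in the IPO libraries, against 6.86, 8.85 and 8.95 FPKM in the IR libraries, a log2 difference of 0.74 (SE 0.15, limma adjusted p = 0.00797). Lats1, the kinase that inactivates YAP, had 10.4, 9.87 and 8.80 FPKM in the IPO libraries, against 4.43, 5.62 and 5.80 FPKM in the IR libraries, a log2 difference of 0.82 (SE 0.14, limma adjusted p = 0.00423). The targets Cyr61 and Amotl2 moved the other way, and Amotl2 had 3.92, 2.92 and 2.96 FPKM in the IPO libraries, against 6.48, 6.56 and 7.36 FPKM in the IR libraries, a log2 difference of -0.96 (SE 0.18, limma adjusted p = 0.00731). Transcripts of the coactivator and of its kinase were thus higher, and those of these targets lower, with no overlap between the groups.

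Of 35 aminoacyl-tRNA synthetases 6 rose (17.1%) and 2 fell (5.71%), against 12% and 10.1% of all genes. The higher count was 3 on leaving out IPO replicate 1 and the lower count 0 on leaving out any IPO library, IR replicate 1 or 2. Of 29 apolipoprotein and lipoprotein genes 1 rose (3.45%) and 4 fell (13.8%), and the lower count was 2 on leaving out IPO replicate 2 or 3. Apol7a had 6.45, 2.95 and 5.07 FPKM in the IPO libraries, against 10.1, 16.1 and 11.8 FPKM in the IR libraries, a log2 difference of -1.34 (SE 0.28, limma adjusted p = 0.0103). In the list of 23 CAR and PXR genes 4 rose (17.4%) and 1 fell (4.35%), the fall being that of Nr1i3 given above. The 4 rises were Cyp2b10, Sult1e1, Cyp2c29 and Cyp3a13, and all 4 passed when any 1 library was left out.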
